A study of Mus musculus with 13 samples.

Results

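Gene expression in the hemisphere that received a controlled cortical impact (CCI) was compared with that in the hemisphere that received a sham operation, 4 days after surgery. CCI models traumatic brain injury by pushing a piston into the exposed cortex. The comparison takes the 4 CCI ipsilateral libraries and the 2 sham ipsilateral libraries, 6 of the 13 libraries of the series, and all genes of the count table. The remaining libraries are 4 contralateral hemispheres of the CCI mice and 3 contralateral hemispheres of sham mice. Libraries were assigned to the groups by the labels of hemisphere and treatment alone, with no use of measured values.

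All 7 mice were male, wild type, of strain C57BL/6 and 12 to 16 weeks old. The labels give anesthesia with the impact surgery, and both groups are compared at day 4. The CCI ipsilateral libraries came from animals 1, 2, 3 and 5 and are called CCI 1, CCI 2, CCI 3 and CCI 5. The sham ipsilateral libraries came from animals 4 and 6 and are called sham 4 and sham 6. Each library is 1 hemisphere of 1 animal, so no animal is in both groups. Sample names carry RH for all ipsilateral and LH for all contralateral libraries, so the operated side and the side coded RH cannot be told apart. The labels name a whole brain hemisphere and do not say how much tissue around the impact was taken.

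In brain tissue damaged by an impact, resident microglia respond within hours and monocytes enter from the blood and become macrophages over the following days. These phagocytes take up myelin, dead cells and blood, and store or export the cholesterol that this brings. Astrocytes around the lesion become reactive, and neurons in and near it are lost or change their activity. In whole tissue, a lower level from fewer cells of a type and a lower level from less RNA per cell cannot be told apart.

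Library totals ran from 7126708 to 7955076 counts for CCI ipsilateral and from 5908022 to 6874956 for sham ipsilateral tissue, with 19248 to 19475 and 18499 to 18684 genes detected. Sham 4 and sham 6 stood apart from the other libraries on the second principal component of the 500 most variable genes, which held 6.31% of the variance: they lay at -13.31 and -11.37, against -5.545 to 9.761 for the others, sham contralateral libraries included. For this reason each group of genes was also compared with the 3 sham contralateral libraries, and those values are given where they change a call or a count. Mitochondrially encoded transcripts took 6.79 to 8.04% of counts in CCI ipsilateral and 8.10 to 9.03% in sham ipsilateral libraries, so their share moved with the groups, and its part in the results was not tested. Markers of the labelled tissue were present: the summed level of 6 neuron markers was 4303 to 4858 CPM (counts scaled to a common library size) in CCI and 5803 to 6279.6 CPM in sham ipsilateral libraries. Gad2, an enzyme of GABA synthesis and a member of that list, was listed at 0 counts in all 13 libraries, while Gad1 of the same pathway had 366, 386, 484 and 327 CPM in CCI 1, 2, 3 and 5 against 453 and 433 CPM in sham 4 and 6.

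Of all genes in the table, 14875 passed the filter on low counts. At a Benjamini-Hochberg adjusted p under 0.05 in edgeR's quasi-likelihood test, 1859 genes (12.5% of those tested) were higher and 1493 (10.0%) were lower after CCI, 22.5% in all. The increases were larger than the decreases. At least 2-fold increases numbered 730 and decreases 44, at least 4-fold 281 and 3, and at least 16-fold 52 and 1. The median log2 fold change of the higher genes was 0.77 and that of the lower genes -0.33, against 0.00 over all genes tested. Decreases smaller than 1.5-fold made up 88.6% of all lower calls, and increases of that size 37.5% of the higher calls.

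The higher genes were mostly of low level in sham tissue and the lower genes of high level: the median sham level was 11.1 CPM for the higher and 107.5 CPM for the lower genes. CPM of the groups did not overlap for 1834 of the higher and 1457 of the lower genes, and for 41.3% of all genes tested. With limma on log2(TPM + 1), in place of edgeR on counts, 1824 genes were called up and 660 down, and what moved the split between directions was not tested. Where a change is given on log2 TPM, it covers the 3 limma fits with pseudocounts of 1 and 0.1 and with 1 and no filter. Calls depended on the sham libraries. Without sham 4, 1288 of the higher and 951 of the lower genes kept their call, and without sham 6, 948 and 646 did. Against the sham contralateral libraries 1845 genes (12.4%) were higher and 1317 (8.85%) lower, among them 1452 and 916 of the calls above. The sham ipsilateral mean was above the sham contralateral mean for 88.2% of the lower genes and 24.4% of the higher genes, against 48.8% of all genes tested.

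**Figure D1:**
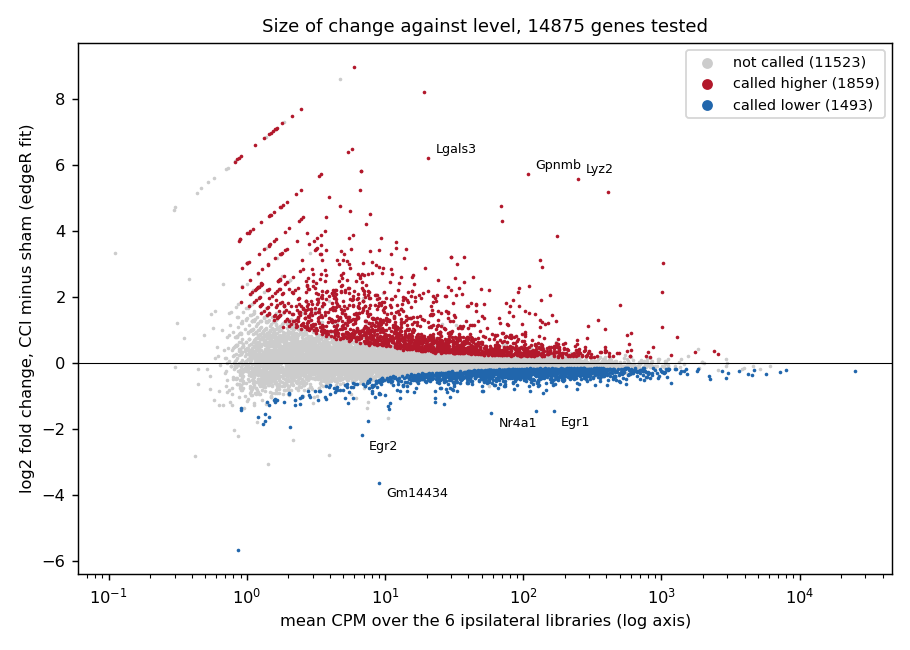
Log2 fold change of CCI ipsilateral over sham ipsilateral libraries from the edgeR fit (vertical axis) against the mean CPM over the 6 ipsilateral libraries (horizontal log axis), 1 point for each of the 14875 genes tested. Red points are the 1859 genes called higher, blue points the 1493 called lower and grey points the 11523 not called. The red points reach far above 2 on the log2 scale, most blue points lie within 1 of the zero line, and the straight rows of points at the left are genes with few or no sham counts, whose fitted values depend on the prior count.

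Increases were ranked among called genes of at least 5 CPM whose groups did not overlap. The 10 largest were in Arg1, Tgm1, Timp1, Cd5l, Lgals3, Lilrb4, Msr1, Ch25h, Gpnmb and Lyz2. Timp1 encodes an inhibitor of matrix metalloproteinases that reactive astrocytes and macrophages secrete. It measured 7.65, 6.17, 8.90 and 11.8 CPM in CCI 1, 2, 3 and 5 against 0.172 and 0 CPM in sham 4 and 6. CCI 5 was highest. Summed counts of Timp1 were 1 in sham and 267 in CCI ipsilateral libraries, or 107 (95% counting interval 19.1 to 4259) times as many after scaling for library size (edgeR adjusted p = 3.26e-09). Intervals of this kind cover counting error only.

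Lgals3 encodes galectin-3, a sugar-binding protein of phagocytes (ENSMUSG00000050335.14, chromosome 14, 47367751 to 47386160, plus strand, GRCm38). It measured 31.0, 24.7, 35.4 and 31.3 CPM in CCI 1, 2, 3 and 5 against 0.517 and 0.302 CPM in sham 4 and 6. All CCI libraries were far above both sham libraries (72.7-fold, fitted log2 change 6.18 ± 0.33 SE, adjusted p by edgeR = 1.39e-14). Gpnmb, a membrane glycoprotein of phagocytes that hold much lipid (ENSMUSG00000029816.8, chromosome 6, 49036546 to 49070929, plus strand), measured 133, 121, 235 and 154 CPM in CCI 1, 2, 3 and 5 against 2.24 and 3.77 CPM in sham 4 and 6. CCI 3 stood highest for this gene (fitted log2 change 5.71 ± 0.48 SE, adjusted p by edgeR = 2.23e-05). Lyz2, the lysozyme of macrophages and neutrophils (ENSMUSG00000069516.7, chromosome 10, 117277331 to 117282321, minus strand), measured 306, 286, 489 and 405 CPM in CCI 1, 2, 3 and 5 against 7.40 and 8.15 CPM in sham 4 and 6. CCI 3 was again highest (fitted log2 change 5.57 ± 0.40 SE, adjusted p by edgeR = 8.23e-06).

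Cd5l encodes a scavenger receptor protein that resident macrophages of liver and spleen secrete. It measured 7.65, 6.04, 8.49 and 10.2 CPM in CCI 1, 2, 3 and 5 against 0 and 0.151 CPM in sham 4 and 6, with 1 count over both sham libraries. Msr1, a scavenger receptor for modified lipoproteins, measured 10.9, 6.17, 13.7 and 9.34 CPM in CCI 1, 2, 3 and 5 against 0 and 0.302 CPM in sham 4 and 6, with 2 sham counts. For both genes sham levels were at the edge of detection. The ratio of scaled counts was 101 (95% counting interval 17.9 to 3989) for Cd5l and 61.6 (95% counting interval 16.9 to 511) for Msr1 (edgeR adjusted p = 2e-06 and 5.28e-05).

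Ch25h, the enzyme that hydroxylates cholesterol to an oxysterol signal in activated macrophages, measured 6.44, 3.70, 5.47 and 4.98 CPM in CCI 1, 2, 3 and 5 against 0 and 0.151 CPM in sham 4 and 6. Lilrb4, an inhibitory receptor of myeloid cells, measured 9.66, 6.91, 12.2 and 11.3 CPM in CCI 1, 2, 3 and 5 against 0.172 and 0.151 CPM in sham 4 and 6. CCI 2 was lowest for both genes. Ratios of scaled counts were 63.6 (95% counting interval 11.2 to 2527) and 62.0 (95% counting interval 17.0 to 514), with edgeR adjusted p = 7.15e-08 and 5.33e-10. Tgm1, a transglutaminase known from the cornified envelope of skin, measured 27.8, 19.4, 33.3 and 35.3 CPM in CCI 1, 2, 3 and 5 against 0 and 0.151 CPM in sham 4 and 6. It had 1 count over the sham libraries (edgeR adjusted p = 1.14e-05).

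**Figure D2:**
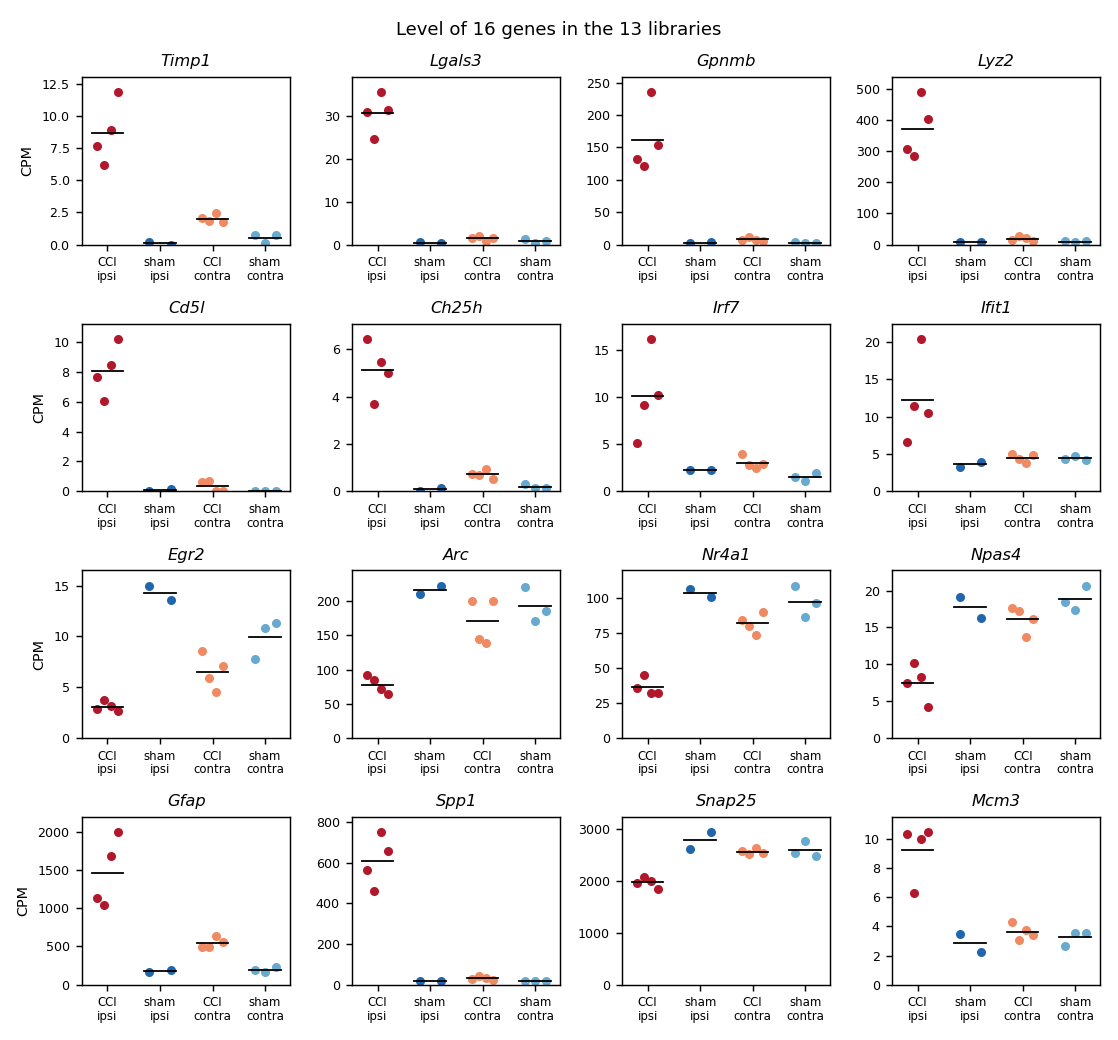
CPM (vertical axis, starting at 0, with its own scale in each panel) of 16 genes in each library, 1 point a library, grouped as CCI ipsilateral (red), sham ipsilateral (dark blue), CCI contralateral (orange) and sham contralateral (light blue); the bar is the group mean. The CCI ipsilateral points of Timp1, Lgals3, Gpnmb and Lyz2 lie above all other libraries, those of Egr2, Arc, Nr4a1 and Npas4 lie below all others, and 1 of the 4 CCI ipsilateral points of Mcm3 (CCI 2) lies below the rest of its group.

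Genes without a count in either sham ipsilateral library show what was not detectable in sham tissue at this depth. Ranked by counts after CCI, the first was Arg1, arginase of alternatively activated macrophages, with 275 counts over the 4 CCI libraries and 11.7, 5.80, 9.44 and 8.97 CPM in CCI 1, 2, 3 and 5. Against a floor of 3 counts over both sham libraries this is at least 36.9-fold higher (edgeR adjusted p = 3.26e-09). Apoc2, a lipoprotein component that activates lipoprotein lipase, had 112 counts, at least 15.0-fold higher. Ccl2, the chemokine that draws monocytes, had 97 counts, at least 13.0-fold higher. These genes were detected in every CCI library, and edgeR adjusted p was 7.67e-06 for Apoc2 and 5.32e-05 for Ccl2.

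Clec4n, the lectin receptor dectin-2 of myeloid cells, had 84 counts in CCI (at least 11.3-fold, edgeR adjusted p = 2.99e-05). Fgr, a Src-family kinase of myeloid cells, had 74 (at least 9.93-fold, edgeR adjusted p = 5e-05). Gm29374, which the annotation lists as other than protein coding, had 77 (at least 10.3-fold, edgeR adjusted p = 2.14e-05). These 3 genes were called. Gm5537 had 210 counts but was not called (edgeR adjusted p = 0.436), and CCI 1 held most of them at 26.0, 0, 2.19 and 0 CPM in CCI 1, 2, 3 and 5. The last of the 8, a row whose symbol another gene of the table also carries, was not called and is not described.

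On the CPM scale, which does not correct for length, the 10 largest gains included Gfap, Ctsd, Ctsb, Apoe, Spp1, Eef1a1, Ftl1, Psap and Lyz2. Ctsd, the aspartic protease cathepsin D of lysosomes, measured 1385, 1092, 1520.2 and 1472 CPM in CCI 1, 2, 3 and 5 against 329.8 and 290.0 CPM in sham 4 and 6 (fitted log2 change 2.14 ± 0.13 SE, adjusted p by edgeR = 1.24e-07). Apoe, the main lipoprotein of brain lipid transport, measured 1444, 1461, 1532 and 1632 CPM in CCI 1, 2, 3 and 5 against 938 and 827 CPM in sham 4 and 6 (fitted log2 change 0.78 ± 0.08 SE, adjusted p by edgeR = 3.69e-08). Both rose in every CCI library. Ftl1, the light chain of the iron-storing ferritin, measured 661, 555, 670.1 and 713 CPM in CCI 1, 2, 3 and 5 against 195 and 192 CPM in sham 4 and 6 (fitted log2 change 1.75 ± 0.08 SE, adjusted p by edgeR = 2.11e-13). Ctsb, the cysteine protease cathepsin B, rose with a log2 fold change of 1.08 (edgeR adjusted p = 1.46e-12). Eef1a1, a translation elongation factor, rose by 0.35 on the log2 scale, and Psap, the precursor of lysosomal sphingolipid activators, by 0.32 (edgeR adjusted p = 4.88e-05 and 0.000208).

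The 10 largest losses of CPM were Snap25 and 9 genes that are encoded by mitochondrial DNA or are close copies of it. Snap25, a synaptic vesicle fusion protein, measured 1948, 2074, 1995 and 1834 CPM in CCI 1, 2, 3 and 5 against 2614 and 2926 CPM in sham 4 and 6. It was lower in every CCI library (fitted log2 change -0.50 ± 0.06 SE, adjusted p by edgeR = 6.44e-07). Of 8 mitochondrially encoded genes on a list, 5 were lower, mt-Co1 with 24967, 24369, 21653 and 24636 CPM in CCI 1, 2, 3 and 5 against 26884 and 29829.7 CPM in sham 4 and 6, but none was called without sham 6 (edgeR adjusted p = 0.182 without sham 6 for mt-Co1). Gm28661, Gm10925 and Gm28437, annotated as unprocessed pseudogenes, were lower by -0.35, -0.47 and -0.27 on the log2 scale (edgeR adjusted p = 0.000287, 0.00425 and 0.00239). Gm28661 lost its call at 0.0522 without sham 6, Gm10925 at 0.095 without sham 6, and Gm28437 at 0.214 without sham 6. Their reads may be shared with mitochondrial transcripts, so their values are uncertain.

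Genes of the myeloid lineage were then read list by list. Each list is set against the 12.5% of all tested genes that were higher and the 10.0% that were lower. Of 20 myeloid transcription factors tested, 14 rose and 1 fell, with a median log2 fold change of 0.62. Spi1, the factor PU.1 that specifies myeloid cells, measured 7.78, 8.51, 9.17 and 12.1 CPM in CCI 1, 2, 3 and 5 against 2.24 and 1.81 CPM in sham 4 and 6 (fitted log2 change 2.21 ± 0.28 SE, adjusted p by edgeR = 9.29e-07). Irf8, which acts with it in monocytes and microglia, measured 17.3, 13.9, 19.4 and 17.1 CPM in CCI 1, 2, 3 and 5 against 2.58 and 4.68 CPM in sham 4 and 6 (fitted log2 change 2.19 ± 0.24 SE, adjusted p by edgeR = 9.39e-08). Runx1, a haematopoietic factor that is low in resting adult microglia, measured 4.70, 4.07, 4.79 and 4.98 CPM in CCI 1, 2, 3 and 5 against 0.172 and 0.453 CPM in sham 4 and 6 (fitted log2 change 3.78 ± 0.49 SE, adjusted p by edgeR = 1.18e-06). The groups did not overlap for these 3 genes, and CCI values lay close together. Bhlhe40, a repressor that neurons also express, fell (fitted log2 change -0.45 ± 0.07 SE, adjusted p by edgeR = 2.74e-05). Mitf, a factor of lysosomal genes, had a fitted log2 change of 0.20 ± 0.16 SE and was not called (edgeR adjusted p = 0.417). Without sham 6, 8 factors were higher in place of 14.

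Scavenger and efferocytosis receptors, which bind debris and dying cells, rose in 10 of 15 tested, with a median of 0.62. Pros1, the protein S that bridges dying cells to Mer-family receptors, measured 34.3, 29.5, 41.9 and 37.2 CPM in CCI 1, 2, 3 and 5 against 12.7 and 11.3 CPM in sham 4 and 6 (fitted log2 change 1.57 ± 0.14 SE, adjusted p by edgeR = 1.8e-09). Havcr2, the receptor Tim-3 for exposed phosphatidylserine, measured 8.05, 9.75, 12.0 and 8.47 CPM in CCI 1, 2, 3 and 5 against 2.24 and 2.57 CPM in sham 4 and 6 (fitted log2 change 1.98 ± 0.26 SE, adjusted p by edgeR = 1.75e-06). Cd93, a receptor of myeloid cells and endothelium, rose with fitted log2 change 1.30 ± 0.17 SE, adjusted p by edgeR = 5.62e-06. All 3 were higher in every CCI library than in either sham library. Mfge8, a bridging protein that astrocytes make, had 122 ± 8.78 CPM (SD, n = 4) in CCI and 131 ± 16.7 CPM (n = 2) in sham libraries and was not called (log2 fold change -0.09 ± 0.13 SE, edgeR adjusted p = 0.677).

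Paired and inhibitory receptors of myeloid cells, which set the threshold of phagocyte activation, rose in 11 of 14 tested, with a median of 2.12. Pirb, an inhibitory receptor for MHC class I, measured 5.37, 4.56, 7.12 and 4.24 CPM in CCI 1, 2, 3 and 5 against 0.689 and 0.302 CPM in sham 4 and 6 (fitted log2 change 3.41 ± 0.45 SE, adjusted p by edgeR = 1.34e-06). Siglec1, the sialic acid receptor of some macrophages, measured 3.22, 3.58, 5.61 and 5.73 CPM in CCI 1, 2, 3 and 5 against 0.689 and 0.151 CPM in sham 4 and 6 (fitted log2 change 3.43 ± 0.50 SE, adjusted p by edgeR = 7.07e-06). AF251705, a receptor of the Cd300 family, rose with fitted log2 change 2.14 ± 0.30 SE, adjusted p by edgeR = 3.43e-06. The groups did not overlap for any of the 3. Sirpa, the receptor for the CD47 signal that neurons carry as well, measured 391, 408, 419.8 and 409.7 CPM in CCI 1, 2, 3 and 5 against 406 and 409 CPM in sham 4 and 6, a fitted log2 change of -0.00 ± 0.06 SE (edgeR adjusted p = 0.989).

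The Ms4a family encodes tetraspanning membrane proteins of leukocytes. Of 10 members, 4 were tested and all rose, with a median of 3.45. At 4 to 13 sham counts a gene passes the filter only if higher elsewhere, so this is no test. Ms4a7, known from macrophages rather than resting microglia, measured 4.16, 3.45, 5.75 and 4.24 CPM in CCI 1, 2, 3 and 5 against 0.517 and 0.151 CPM in sham 4 and 6 (fitted log2 change 3.69 ± 0.55 SE, adjusted p by edgeR = 8.98e-06). Ms4a6c measured 6.30, 6.04, 13.0 and 7.10 CPM in CCI 1, 2, 3 and 5 against 0.517 and 0.906 CPM in sham 4 and 6 (fitted log2 change 3.45 ± 0.48 SE, adjusted p by edgeR = 8.86e-06). No sham library reached a CCI value for either gene. Ms4a6d rose with fitted log2 change 2.88 ± 0.36 SE, adjusted p by edgeR = 6.12e-07.

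Signalling proteins of blood cells rose in 18 of 20 tested, with a median of 1.78, and actin regulators of leukocytes in 17 of 19, with a median of 1.94. Ptprc, the leukocyte phosphatase CD45, measured 17.4, 13.1, 21.6 and 17.3 CPM in CCI 1, 2, 3 and 5 against 4.65 and 5.43 CPM in sham 4 and 6 (fitted log2 change 1.77 ± 0.22 SE, adjusted p by edgeR = 5.84e-07). Lyn, a Src-family kinase downstream of Fc receptors, rose with fitted log2 change 1.87 ± 0.18 SE, adjusted p by edgeR = 5.01e-09, and Ptpn6, the phosphatase that inhibitory receptors recruit, with fitted log2 change 1.96 ± 0.25 SE, adjusted p by edgeR = 1.02e-06. Among the actin regulators, Lcp1, the bundling protein L-plastin of leukocytes, measured 43.9, 36.6, 47.9 and 48.5 CPM in CCI 1, 2, 3 and 5 against 8.95 and 6.19 CPM in sham 4 and 6 (fitted log2 change 2.56 ± 0.16 SE, adjusted p by edgeR = 8.21e-13). Arpc1b, a subunit of the Arp2/3 complex common in blood cells, measured 46.3, 38.5, 54.9 and 54.1 CPM in CCI 1, 2, 3 and 5 against 12.9 and 10.1 CPM in sham 4 and 6 (fitted log2 change 2.08 ± 0.15 SE, adjusted p by edgeR = 1.5e-10). Tagln2, an actin-binding transgelin, rose with fitted log2 change 1.82 ± 0.16 SE, adjusted p by edgeR = 7.3e-10. Values did not overlap between the groups for these 6 genes.

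A few members of these lists behaved otherwise. Prkcd, a protein kinase C that thalamic and other neurons express, fell (fitted log2 change -0.68 ± 0.15 SE, adjusted p by edgeR = 0.00695), a call that was lost at 0.0823 without sham 4 and 0.0902 with the ipsilateral libraries alone. Fmnl1, a formin of leukocytes and neurons, fell (fitted log2 change -0.43 ± 0.10 SE, adjusted p by edgeR = 0.00284), and adjusted p was 0.0692 without sham 4. Coro1a, an actin regulator of leukocytes and neurons, measured 70.8, 67.7, 72.3 and 64.8 CPM in CCI 1, 2, 3 and 5 against 74.0 and 63.3 CPM in sham 4 and 6, a fitted log2 change of 0.01 ± 0.08 SE (edgeR adjusted p = 0.96). Pik3cd, a phosphoinositide kinase subunit of leukocytes, was also not called (log2 fold change 0.08 ± 0.11 SE, edgeR adjusted p = 0.686).

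**Figure D3:**
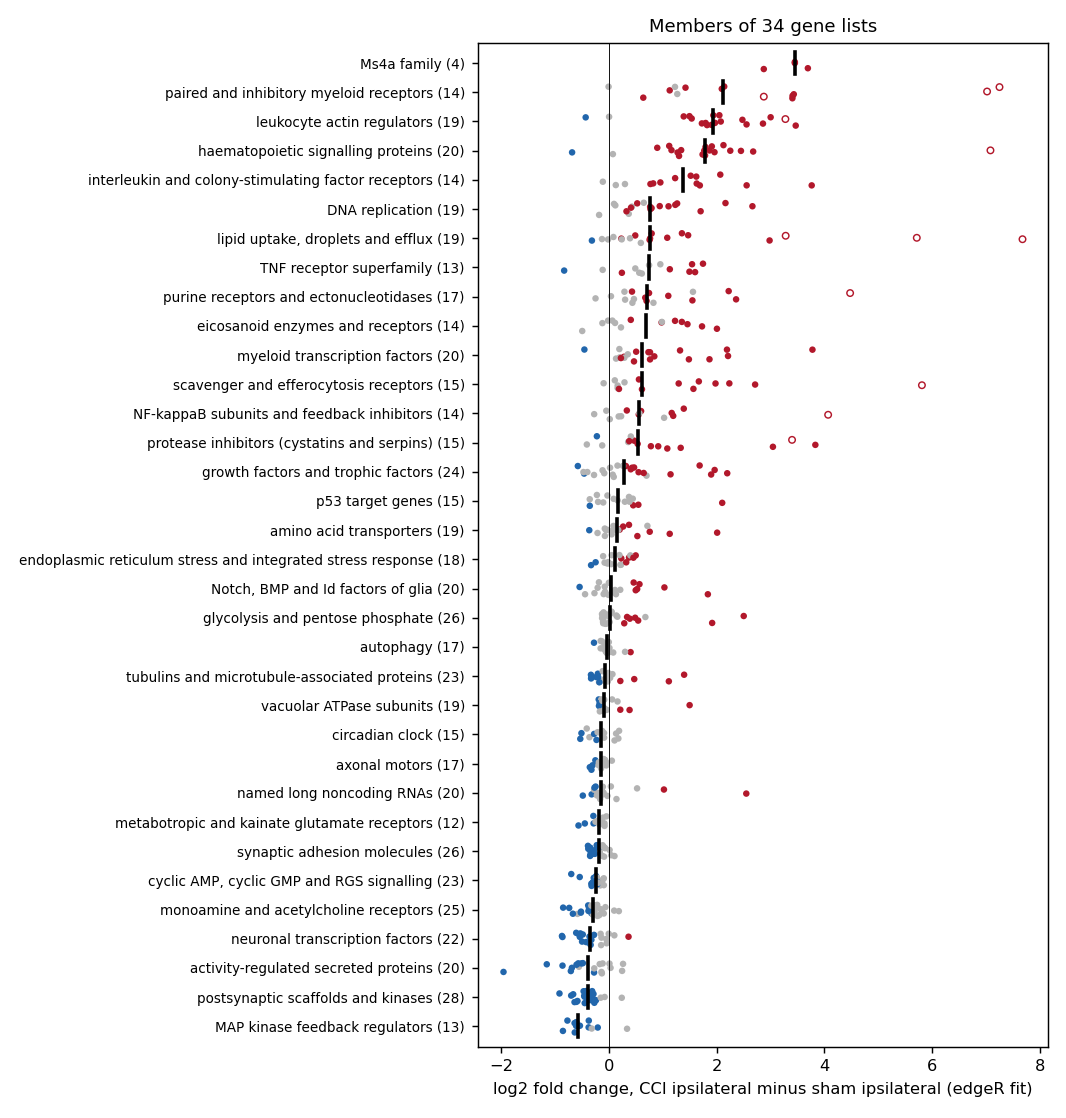
Log2 fold change of CCI ipsilateral over sham ipsilateral libraries (horizontal axis, edgeR fit) for the tested members of 34 gene lists (rows, with the number tested), ordered by median (black bar). Red points were called higher, blue lower and grey not called, and open circles are genes with 3 or fewer counts over both sham libraries, whose fitted values are no bound. The lists at the top have medians from 0.56 to 3.45 and include the myeloid lists with others, such as DNA replication, TNF receptors and NF-kappaB. Metabolic and stress lists lie near 0, and the neuronal lists at the bottom have medians down to -0.57.

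Receptors for interleukins and colony-stimulating factors rose in 11 of 14 tested, with a median of 1.38. Csf2rb, the shared signalling chain of the GM-CSF receptor, measured 8.59, 5.80, 9.72 and 7.47 CPM in CCI 1, 2, 3 and 5 against 0.517 and 0.604 CPM in sham 4 and 6 (fitted log2 change 3.76 ± 0.38 SE, adjusted p by edgeR = 1.55e-08). Csf2rb2, its near copy in the mouse, rose with fitted log2 change 2.56 ± 0.33 SE, adjusted p by edgeR = 8.84e-07, and since the sequences are alike the division of reads between them is uncertain. Csf3r, the receptor of G-CSF on neutrophils and other myeloid cells, measured 18.9, 16.0, 21.1 and 23.8 CPM in CCI 1, 2, 3 and 5 against 4.82 and 7.40 CPM in sham 4 and 6 (fitted log2 change 1.69 ± 0.20 SE, adjusted p by edgeR = 1.86e-07). No sham value reached a CCI value for these genes. Il1rap, the accessory chain of interleukin receptors of that family, was not called at 0.13 ± 0.10 SE (edgeR adjusted p = 0.402).

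Receptors of the TNF superfamily rose in 6 of 13 tested, with a median of 0.75. Tnfrsf1a, the widely expressed TNF receptor, measured 28.2, 24.1, 26.7 and 33.8 CPM in CCI 1, 2, 3 and 5 against 10.7 and 8.00 CPM in sham 4 and 6 (fitted log2 change 1.60 ± 0.16 SE, adjusted p by edgeR = 1.4e-08). Tnfrsf1b, the TNF receptor of immune cells, measured 13.4, 13.1, 19.8 and 16.9 CPM in CCI 1, 2, 3 and 5 against 6.03 and 3.47 CPM in sham 4 and 6 (fitted log2 change 1.75 ± 0.25 SE, adjusted p by edgeR = 1e-05). Ltbr, the lymphotoxin receptor, rose with fitted log2 change 1.13 ± 0.21 SE, adjusted p by edgeR = 0.000123. CCI and sham values were separate for all 3. Tnfrsf25, a death receptor of T cells, fell from 6.66 ± 0.405 CPM (SD, n = 2) to 3.76 ± 0.977 CPM (n = 4; fitted log2 change -0.83 ± 0.27 SE, adjusted p by edgeR = 0.0241), a call that was lost at 0.0515 to 0.193 without CCI 2, CCI 3, sham 4 or sham 6, 0.136 to 0.208 on log2 TPM, 0.083 with DESeq2 and 0.068 against the sham contralateral libraries. Tnfrsf21, a death receptor of neurons and oligodendrocytes, was not called (-0.11 ± 0.08 SE, edgeR adjusted p = 0.337).

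NF-kappaB subunits and their feedback inhibitors, the relay below these receptors, rose in 7 of 14 tested, with a median of 0.56. Rela, the main activating subunit, measured 28.2, 24.2, 26.7 and 29.4 CPM in CCI 1, 2, 3 and 5 against 18.3 and 17.5 CPM in sham 4 and 6 (fitted log2 change 0.60 ± 0.12 SE, adjusted p by edgeR = 0.000425). Nfkb2, the precursor subunit of the noncanonical arm, measured 5.50, 5.18, 5.61 and 7.47 CPM in CCI 1, 2, 3 and 5 against 2.41 and 2.11 CPM in sham 4 and 6 (fitted log2 change 1.39 ± 0.28 SE, adjusted p by edgeR = 0.000435). Bcl3, an atypical inhibitor of the family, had 2 counts in sham against 92 in CCI tissue, for a scaled ratio of 18.5 (95% counting interval 4.98 to 155) (adjusted p by edgeR = 2.27e-05). These genes were higher in every CCI library. The count fell to 4 with DESeq2 and 3 without sham 6. Tnip1, an inhibitor of the pathway, was not called (0.23 ± 0.12 SE, edgeR adjusted p = 0.189). Against the sham contralateral libraries it was called higher (0.33, edgeR adjusted p = 0.022).

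Genes of lipid uptake, droplets and efflux rose in 12 of 19 tested and fell in 1, with a median of 0.76. Plin2, the coat protein of lipid droplets (ENSMUSG00000028494.10, chromosome 4, 86648386 to 86670060, minus strand), measured 50.2, 31.6, 56.7 and 48.5 CPM in CCI 1, 2, 3 and 5 against 6.54 and 5.28 CPM in sham 4 and 6 (fitted log2 change 2.98 ± 0.23 SE, adjusted p by edgeR = 4.36e-08). Abca1, the transporter that exports cholesterol to apolipoproteins (ENSMUSG00000015243.4, chromosome 4, 53030787 to 53159895, minus strand), measured 156, 131, 171 and 163 CPM in CCI 1, 2, 3 and 5 against 55.4 and 56.3 CPM in sham 4 and 6 (fitted log2 change 1.47 ± 0.10 SE, adjusted p by edgeR = 1.2e-11). Both were higher in every CCI library, the droplet coat gene by the larger fold. Fabp3, a fatty acid binding protein of neurons and muscle, fell (fitted log2 change -0.31 ± 0.10 SE, adjusted p by edgeR = 0.024), a call lost at 0.0657 to 0.199 without CCI 3, CCI 5, sham 4 or sham 6, 0.0838 to 0.138 on log2 TPM and 0.0596 with DESeq2. Nceh1, a hydrolase of cholesterol esters, was not called (-0.12 ± 0.07 SE, edgeR adjusted p = 0.191).

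Enzymes and receptors of eicosanoids, lipid mediators made from arachidonic acid, rose in 7 of 14 tested, with a median of 0.70. Tbxas1, the thromboxane synthase of macrophages and platelets, measured 7.51, 6.54, 9.58 and 7.60 CPM in CCI 1, 2, 3 and 5 against 1.55 and 2.26 CPM in sham 4 and 6 (fitted log2 change 2.01 ± 0.29 SE, adjusted p by edgeR = 6.22e-06). Hpgds, the haematopoietic prostaglandin D synthase, measured 20.1, 13.2, 21.1 and 21.6 CPM in CCI 1, 2, 3 and 5 against 6.89 and 7.85 CPM in sham 4 and 6 (fitted log2 change 1.36 ± 0.22 SE, adjusted p by edgeR = 6.85e-05). Alox5ap, which hands arachidonic acid to lipoxygenase, rose with fitted log2 change 1.46 ± 0.27 SE, adjusted p by edgeR = 0.000131. Values of the groups were separate for these 3 genes. Ptgds, the prostaglandin D synthase of meninges and oligodendrocytes, measured 698, 611, 420.2 and 604 CPM in CCI 1, 2, 3 and 5 against 598 and 478 CPM in sham 4 and 6 and was not called (0.12 ± 0.19 SE, edgeR adjusted p = 0.733). Without sham 6, 4 members were higher.

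Purine receptors and ectonucleotidases, which sense and clear extracellular nucleotides, rose in 9 of 17 tested, with a median of 0.70. P2ry6, the UDP receptor of phagocytic microglia, measured 6.71, 5.92, 7.80 and 6.48 CPM in CCI 1, 2, 3 and 5 against 1.72 and 0.906 CPM in sham 4 and 6 (fitted log2 change 2.36 ± 0.35 SE, adjusted p by edgeR = 8.01e-06). Gpr34, a lysophospholipid receptor of microglia grouped here by sequence, measured 22.0, 17.3, 24.8 and 23.4 CPM in CCI 1, 2, 3 and 5 against 10.2 and 10.1 CPM in sham 4 and 6 (fitted log2 change 1.11 ± 0.17 SE, adjusted p by edgeR = 1.03e-05). Both were higher in every CCI library. Gpr65, a proton-sensing receptor of immune cells, had 1 sham count against 67 CCI counts, for a scaled ratio of 27.0 (95% counting interval 4.68 to 1081) (adjusted p by edgeR = 0.000148). Adora2a, the adenosine receptor of striatal neurons, was not called (-0.24 ± 0.11 SE, edgeR adjusted p = 0.123). Without sham 6, 4 members were higher, and without CCI 2, 1 was lower.

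The proton pump and the autophagy machinery, which serve the same lysosomes, did not rise as lists. Of 19 vacuolar ATPase subunits tested, 3 were higher and 3 lower, with a median of -0.09. The exception in size was Tcirg1, the pump subunit of osteoclasts and macrophages, with 31.1, 32.7, 40.6 and 40.0 CPM in CCI 1, 2, 3 and 5 against 15.0 and 10.7 CPM in sham 4 and 6 (fitted log2 change 1.50 ± 0.15 SE, adjusted p by edgeR = 3.64e-08). Atp6v0a1, the corresponding subunit of neurons, fell from 495 ± 5.41 CPM (SD, n = 2) to 436 ± 11.1 CPM (n = 4; fitted log2 change -0.18 ± 0.06 SE, adjusted p by edgeR = 0.0184). Atp6v0e and Atp6v0a2 were higher and Atp6v1g2 and Atp6v1d lower, with log2 fold changes of 0.39, 0.22, -0.17 and -0.18 (edgeR adjusted p = 0.0212, 0.0306, 0.0328 and 0.0359). Atp6v1b2, a subunit of the cytosolic sector, was not called (-0.13 ± 0.06 SE, edgeR adjusted p = 0.116). None of these 5 small differences was called in every alternative. In all, the count of higher members was 1 without sham 4 or sham 6 or with DESeq2, and the count of lower members was 1 without CCI 5, sham 4 or CCI contralateral 2, without the filter on low counts or with the ipsilateral libraries alone, 5 without CCI 3 or against the sham contralateral libraries, 0 without sham 6 and 0 on log2 TPM.

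Among 17 autophagy genes tested, 1 rose and 1 fell, with a median of -0.03. Gabarap, a protein of the autophagosome membrane, measured 140.5, 131, 129 and 140.2 CPM in CCI 1, 2, 3 and 5 against 95.7 and 108 CPM in sham 4 and 6 (fitted log2 change 0.41 ± 0.07 SE, adjusted p by edgeR = 7.89e-05). Map1lc3a, a relative that is abundant in neurons, measured 81.2, 84.9, 81.4 and 80.2 CPM in CCI 1, 2, 3 and 5 against 107 and 91.2 CPM in sham 4 and 6 (fitted log2 change -0.27 ± 0.07 SE, adjusted p by edgeR = 0.00725), a call lost at 0.269 without sham 4 and 0.186 to 0.249 on log2 TPM. The relatives thus lay on opposite sides of the sham values. Gabarapl1, a further relative, was not called (-0.15 ± 0.06 SE, edgeR adjusted p = 0.0996). Against the sham contralateral libraries it was called lower (-0.22, edgeR adjusted p = 0.00409). For autophagy genes, the count of higher members was 2 without CCI 1 or against the sham contralateral libraries, and the count of lower members was 4 against the sham contralateral libraries, 0 without sham 4 and 0 on log2 TPM.

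Protease inhibitors of the cystatin and serpin families rose in 10 of 15 tested and fell in 1, with a median of 0.54. Serpina3n, a serpin that reactive astrocytes secrete (ENSMUSG00000021091.8, chromosome 12, 104406729 to 104414329, plus strand), measured 238, 208, 299 and 268 CPM in CCI 1, 2, 3 and 5 against 17.4 and 18.1 CPM in sham 4 and 6 (fitted log2 change 3.83 ± 0.22 SE, adjusted p by edgeR = 8.93e-07). Serping1, the inhibitor of the first complement protease, rose with fitted log2 change 1.34 ± 0.21 SE, adjusted p by edgeR = 1.43e-05. CCI values exceeded sham values throughout for both genes. Serpini1, the neuronal serpin, fell (fitted log2 change -0.22 ± 0.08 SE, adjusted p by edgeR = 0.043), a call lost at 0.053 to 0.443 without CCI 2, CCI 5, sham 6, CCI contralateral 2, CCI contralateral 3 or sham contralateral 4 and 0.454 to 0.568 on log2 TPM. Serpinb1a, an inhibitor of neutrophil elastase, was not called (0.36 ± 0.18 SE, edgeR adjusted p = 0.16).

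Growth and trophic factors rose in 11 of 24 tested and fell in 2, with a median of 0.29. Grn, the lysosomal growth factor progranulin, measured 171, 140.4, 208 and 190.1 CPM in CCI 1, 2, 3 and 5 against 45.8 and 49.1 CPM in sham 4 and 6 (fitted log2 change 1.90 ± 0.14 SE, adjusted p by edgeR = 2.61e-07). Csf1, the ligand on which microglia and macrophages depend, measured 42.7, 50.7, 59.0 and 56.9 CPM in CCI 1, 2, 3 and 5 against 25.8 and 21.6 CPM in sham 4 and 6 (fitted log2 change 1.15 ± 0.13 SE, adjusted p by edgeR = 6.97e-07). Clcf1, a cytokine of the ciliary neurotrophic factor family, rose with fitted log2 change 1.69 ± 0.32 SE, adjusted p by edgeR = 0.000187. No value overlapped for these 3. Fgf13, an intracellular member of its family in neurons, fell (fitted log2 change -0.57 ± 0.07 SE, adjusted p by edgeR = 6.53e-07). Fgf9, a growth factor that neurons make, fell with fitted log2 change -0.45 ± 0.15 SE, adjusted p by edgeR = 0.0258, a call lost at 0.0514 to 0.625 without CCI 3, CCI 5 or sham 6, 0.172 to 0.259 on log2 TPM, 0.0867 with DESeq2, 0.0691 with the ipsilateral libraries alone and 0.143 against the sham contralateral libraries. Ptn, the heparin-binding factor pleiotrophin, was not called (0.08 ± 0.09 SE, edgeR adjusted p = 0.612). For growth factors, the count of higher members was 6 without sham 4 or with DESeq2, 7 without sham 6 and 7 to 8 on log2 TPM, and the count of lower members was 1 without CCI 3, CCI 5 or sham 6, with DESeq2, with the ipsilateral libraries alone or against the sham contralateral libraries and 1 on log2 TPM.

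Genes of glycolysis and the pentose phosphate pathway rose in 7 of 26 tested and none fell, with a median of 0.02. Hk2, an inducible hexokinase, measured 10.2, 8.14, 15.3 and 12.6 CPM in CCI 1, 2, 3 and 5 against 1.89 and 4.08 CPM in sham 4 and 6 (fitted log2 change 1.92 ± 0.29 SE, adjusted p by edgeR = 1.43e-05). Hk3, the hexokinase of myeloid cells, measured 7.78, 5.18, 9.72 and 6.85 CPM in CCI 1, 2, 3 and 5 against 0.861 and 1.66 CPM in sham 4 and 6 (fitted log2 change 2.50 ± 0.40 SE, adjusted p by edgeR = 2.88e-05). Taldo1, a transaldolase of the pentose branch, rose with fitted log2 change 0.39 ± 0.08 SE, adjusted p by edgeR = 0.000397, and the groups were separate for all 3. Aldoa, an aldolase of the main pathway, measured 1205, 1218, 1270.0 and 1238 CPM in CCI 1, 2, 3 and 5 against 1402 and 1232 CPM in sham 4 and 6 and was not called (-0.10 ± 0.06 SE, edgeR adjusted p = 0.267). Without sham 6 the count of higher members was 3, and without CCI 3 or with DESeq2, 1 member was lower.

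Genes of DNA replication rose in 13 of 19 tested, with a median of 0.77. Rrm2, the subunit that limits deoxynucleotide supply, measured 8.32, 6.66, 10.1 and 12.7 CPM in CCI 1, 2, 3 and 5 against 2.24 and 1.96 CPM in sham 4 and 6 (fitted log2 change 2.17 ± 0.29 SE, adjusted p by edgeR = 2.36e-06). Uhrf1, which carries DNA methylation through replication, measured 5.50, 3.58, 4.65 and 7.10 CPM in CCI 1, 2, 3 and 5 against 1.03 and 0.604 CPM in sham 4 and 6 (fitted log2 change 2.66 ± 0.39 SE, adjusted p by edgeR = 7.35e-06). Mcm3, a subunit of the replicative helicase, measured 10.3, 6.29, 9.99 and 10.5 CPM in CCI 1, 2, 3 and 5 against 3.44 and 2.26 CPM in sham 4 and 6 (fitted log2 change 1.70 ± 0.27 SE, adjusted p by edgeR = 1.92e-05), and its adjusted p on log2 TPM was 0.0639 to 0.113. CCI 2 was the lowest of the CCI libraries for all 3, though still above both sham libraries. Dut, which clears deoxyuridine triphosphate, was not called (-0.18 ± 0.13 SE, edgeR adjusted p = 0.376). The count of higher members was 8 with DESeq2, 7 without sham 4 and 6 without sham 6.

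Stress responses moved little as lists. Of 15 p53 targets tested, 3 were higher and 1 lower, with a median of 0.16. Trp53inp1, a p53-induced nuclear protein, measured 28.4, 28.4, 30.9 and 30.0 CPM in CCI 1, 2, 3 and 5 against 19.5 and 20.7 CPM in sham 4 and 6 (fitted log2 change 0.55 ± 0.11 SE, adjusted p by edgeR = 0.000345). Eda2r, a receptor of the TNF superfamily, measured 2.28, 1.36, 1.92 and 2.99 CPM in CCI 1, 2, 3 and 5 against 0.517 and 0.453 CPM in sham 4 and 6 (fitted log2 change 2.10 ± 0.56 SE, adjusted p by edgeR = 0.00575). Bax, the pore-forming inducer of apoptosis, rose with fitted log2 change 0.45 ± 0.13 SE, adjusted p by edgeR = 0.0089. Eda2r lost its call at 0.0996 without sham 6, and Bax at 0.23 without sham 6. Plk2, a kinase that activity induces in neurons, fell (fitted log2 change -0.35 ± 0.07 SE, adjusted p by edgeR = 0.000256). Ccng1, a cyclin that p53 induces, was not called (0.09 ± 0.08 SE, edgeR adjusted p = 0.467). Against the sham contralateral libraries Ccng1 was called higher (0.20, edgeR adjusted p = 0.0431). For p53 targets, the count of higher members was 5 without the filter on low counts or against the sham contralateral libraries and 1 without sham 6, and the count of lower members was 2 without sham 4 or sham contralateral 8, with DESeq2 size factors or with limma voom.

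Of 18 genes of endoplasmic reticulum stress and the integrated stress response, 5 were higher and 2 lower, with a median of 0.13. Pdia4, a folding enzyme of the reticulum, measured 55.4, 45.5, 48.7 and 48.8 CPM in CCI 1, 2, 3 and 5 against 37.7 and 34.6 CPM in sham 4 and 6 (fitted log2 change 0.46 ± 0.10 SE, adjusted p by edgeR = 0.000595). Phgdh and Psat1, enzymes of serine synthesis found in astrocytes, rose by 0.50 and 0.23 on the log2 scale (edgeR adjusted p = 0.0156 and 0.00843). Atf4, the central transcription factor of the response, measured 96.2, 104, 89.0 and 92.8 CPM in CCI 1, 2, 3 and 5 against 124 and 116 CPM in sham 4 and 6 and fell (fitted log2 change -0.33 ± 0.07 SE, adjusted p by edgeR = 0.00127). Asns, the asparagine synthetase it induces, fell by -0.24 (edgeR adjusted p = 0.0167). Phgdh lost its call at 0.0777 to 0.167 without sham 4 or sham 6 and 0.156 against the sham contralateral libraries, Psat1 at 0.0947 without sham 4, and Asns at 0.0539 to 0.122 without CCI 5, sham 4 or sham 6 and 0.111 to 0.157 on log2 TPM. Calr, the chaperone calreticulin, was not called (-0.04 ± 0.07 SE, edgeR adjusted p = 0.774). For these stress genes, the count of higher members was 3 without CCI 1, with DESeq2 or against the sham contralateral libraries, 1 without sham 4 and 2 without sham 6, and the count of lower members was 1 without CCI 5, sham 4 or sham 6 and 1 on log2 TPM.

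Amino acid transporters rose in 7 of 19 tested and fell in 1, with a median of 0.16. Slc7a11, the cystine-glutamate exchanger of astrocytes and macrophages, measured 92.7, 85.4, 93.8 and 101 CPM in CCI 1, 2, 3 and 5 against 56.0 and 54.0 CPM in sham 4 and 6 (fitted log2 change 0.76 ± 0.10 SE, adjusted p by edgeR = 4.62e-06). Slc38a3, a glutamine transporter of astrocytes, measured 105, 106, 116 and 125 CPM in CCI 1, 2, 3 and 5 against 84.2 and 72.3 CPM in sham 4 and 6 (fitted log2 change 0.53 ± 0.08 SE, adjusted p by edgeR = 2.25e-05). Slc7a7, a cationic amino acid transporter of macrophages, rose with fitted log2 change 2.01 ± 0.35 SE, adjusted p by edgeR = 6.8e-05. The groups were separate for each. Slc1a1, the glutamate transporter of neurons, fell (fitted log2 change -0.36 ± 0.07 SE, adjusted p by edgeR = 0.000131). Slc1a2, the main glutamate transporter of astrocytes, measured 2874, 2896, 2858 and 3238 CPM in CCI 1, 2, 3 and 5 against 2816 and 3204 CPM in sham 4 and 6 and was not called (-0.02 ± 0.07 SE, edgeR adjusted p = 0.882). For amino acid transporters, the count of higher members was 3 without sham 6, and the count of lower members was 2 without CCI 1 or sham contralateral 8 or with DESeq2 size factors.

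Notch, BMP and Id factors, which hold glial progenitors, rose in 6 of 20 tested and fell in 1, with a median of 0.04. Bmp4, a ligand that differentiating oligodendrocytes make, measured 5.37, 3.70, 6.84 and 7.35 CPM in CCI 1, 2, 3 and 5 against 1.72 and 1.51 CPM in sham 4 and 6 (fitted log2 change 1.84 ± 0.36 SE, adjusted p by edgeR = 0.000345). Notch3, the Notch receptor of mural cells, rose with fitted log2 change 0.57 ± 0.12 SE, adjusted p by edgeR = 0.00057, and Notch2, that of astrocytes and others, with fitted log2 change 0.53 ± 0.11 SE, adjusted p by edgeR = 0.000912. Hes5, a Notch target of progenitors, fell with fitted log2 change -0.54 ± 0.18 SE, adjusted p by edgeR = 0.0313. Notch3 lost its call at 0.061 without sham 6, Notch2 at 0.107 without sham 6, and Hes5 at 0.0638 to 0.491 without CCI 3, CCI 5 or sham 4, 0.0804 to 0.134 on log2 TPM and 0.101 with DESeq2. Id2, an inhibitor of helix-loop-helix factors, was not called (-0.07 ± 0.07 SE, edgeR adjusted p = 0.529). For Notch and BMP genes, the count of higher members was 2 without sham 6, and the count of lower members was 0 without CCI 3, CCI 5 or sham 4 or with DESeq2 and 0 on log2 TPM.

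Interferon-stimulated genes were described for 8 members whose promoters were looked up. Interferons act through STAT and IRF factors, which bind a repeat called the interferon-stimulated response element, and the products restrict viruses and tag proteins. Promoters are shown because these genes rose together. Of the 8, RefSeq (GRCm38.p6) had an entry for 7, and Usp18 had none. The motif searched was GAAA repeated after 2 bases of any kind, on both strands and with overlaps allowed, in the 250 bases before the start of each gene. It occurred in 5 of the 7, against 2.98% of 32851 promoters of the same length. A match is a description of the letters and not evidence of binding. Capitals mark the bases within matches, so overlapping matches form 1 run, and each sequence reads along the strand of the gene.
Isg15 (chr4:156200819-156201068, minus strand): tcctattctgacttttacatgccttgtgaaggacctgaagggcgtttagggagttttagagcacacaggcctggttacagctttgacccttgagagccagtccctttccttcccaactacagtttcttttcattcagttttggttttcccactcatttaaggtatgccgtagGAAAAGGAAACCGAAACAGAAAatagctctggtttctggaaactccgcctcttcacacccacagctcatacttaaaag
Ifit3 (chr19:34583279-34583528, plus strand): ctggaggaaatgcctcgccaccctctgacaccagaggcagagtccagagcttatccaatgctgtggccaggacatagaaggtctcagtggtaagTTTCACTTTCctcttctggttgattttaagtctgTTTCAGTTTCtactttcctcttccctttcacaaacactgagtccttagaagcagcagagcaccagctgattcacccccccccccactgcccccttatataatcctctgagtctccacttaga
Irf7 (chr7:141266425-141266674, minus strand): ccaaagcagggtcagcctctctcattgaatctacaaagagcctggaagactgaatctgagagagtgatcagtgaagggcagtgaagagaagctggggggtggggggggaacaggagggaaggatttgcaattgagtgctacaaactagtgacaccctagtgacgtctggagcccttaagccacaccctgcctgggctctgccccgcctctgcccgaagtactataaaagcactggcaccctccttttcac

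Isg15 holds matches whose upstream ends lie 78, 72 and 66 bases before the start, and Ifit3 holds them at 156 and 122, on the other strand, where the repeat reads TTTC. Ifit1 holds matches at 104 and 85, Rsad2 at 120 and Bst2 at 130 and 124. These letters were not found in the windows of Irf7 and Oasl2. All 8 rose by selection, so the count is no test. The median log2 change was 2.06. Without sham 4 or sham 6 the count was 6, and with the ipsilateral libraries alone it was 5.

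Irf7, the transcription factor that amplifies the interferon response, measured 5.10, 9.13, 16.1 and 10.2 CPM in CCI 1, 2, 3 and 5 against 2.24 and 2.26 CPM in sham 4 and 6 (fitted log2 change 2.16 ± 0.38 SE, adjusted p by edgeR = 0.000321). Ifit1, an RNA-binding effector, measured 6.57, 11.5, 20.4 and 10.5 CPM in CCI 1, 2, 3 and 5 against 3.27 and 3.92 CPM in sham 4 and 6 (fitted log2 change 1.75 ± 0.37 SE, adjusted p by edgeR = 0.00257). Ifit3, its partner, measured 23.3, 32.4, 56.3 and 34.9 CPM in CCI 1, 2, 3 and 5 against 10.3 and 8.00 CPM in sham 4 and 6 (fitted log2 change 2.01 ± 0.36 SE, adjusted p by edgeR = 0.00272). CCI 3 was highest and CCI 1 lowest for all 3, and every CCI value exceeded both sham values. Isg15, a ubiquitin-like modifier, measured 5.37, 7.65, 8.90 and 6.10 CPM in CCI 1, 2, 3 and 5 against 1.21 and 1.81 CPM in sham 4 and 6 (fitted log2 change 2.19 ± 0.35 SE, adjusted p by edgeR = 2.19e-05), and Usp18, the protease that removes it, rose with fitted log2 change 2.11 ± 0.44 SE, adjusted p by edgeR = 0.000603. Bst2, the membrane tether tetherin, rose with fitted log2 change 2.44 ± 0.33 SE, adjusted p by edgeR = 1.33e-05.

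Oasl2, a relative of the RNA-activated oligoadenylate synthetases, measured 10.7, 13.8, 32.6 and 17.1 CPM in CCI 1, 2, 3 and 5 against 4.48 and 4.98 CPM in sham 4 and 6 (fitted log2 change 1.96 ± 0.46 SE, adjusted p by edgeR = 0.0112). Rsad2, the antiviral enzyme viperin, measured 2.95, 7.53, 7.66 and 6.98 CPM in CCI 1, 2, 3 and 5 against 1.72 and 2.57 CPM in sham 4 and 6 (fitted log2 change 1.53 ± 0.36 SE, adjusted p by edgeR = 0.00202). CCI 3 was again highest for both genes, and for Rsad2 the other CCI libraries except CCI 1 were close behind. Oasl2 lost its call at 0.079 to 0.0944 without sham 4 or sham 6, 0.0525 with limma voom and 0.146 with the ipsilateral libraries alone. Ifit1 lost it at 0.0524 with limma voom and 0.117 with the ipsilateral libraries alone, Ifit3 at 0.0512 without sham 6 and 0.0673 with the ipsilateral libraries alone, and Rsad2 at 0.0566 without sham 4. Irf7, Isg15, Usp18 and Bst2 kept their call in every alternative tried.

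The 10 largest decreases among called genes of at least 5 CPM, ranked under the same condition of no overlap, were in Gm14434, Egr2, Egr4, Nr4a1, Egr1, Arc, Erdr1, Phospho1, Nr4a3 and Gpr3. The Egr and Nr4a genes and Arc are immediate early genes, which neurons transcribe within minutes of activity. Promoters of 8 immediate early genes were looked up because they fell together. They are known to be switched on through cyclic AMP response elements, which bind CREB, and the core of that element, TGACG, was searched on both strands with overlaps allowed. RefSeq (GRCm38.p6) had an entry for 6, with Arc and Egr1 not among them, and 5 of the 6 held the core in the 250 bases before the start, against 17.8% of 32851 promoters. Capitals mark the core on either strand.
Nr4a1 (chr15:101266596-101266845, plus strand): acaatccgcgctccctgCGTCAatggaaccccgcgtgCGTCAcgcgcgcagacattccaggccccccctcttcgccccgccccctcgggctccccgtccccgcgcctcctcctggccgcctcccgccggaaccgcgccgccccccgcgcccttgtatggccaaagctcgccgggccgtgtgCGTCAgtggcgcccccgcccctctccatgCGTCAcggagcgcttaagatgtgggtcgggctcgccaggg
Fos (chr12:85473640-85473889, plus strand): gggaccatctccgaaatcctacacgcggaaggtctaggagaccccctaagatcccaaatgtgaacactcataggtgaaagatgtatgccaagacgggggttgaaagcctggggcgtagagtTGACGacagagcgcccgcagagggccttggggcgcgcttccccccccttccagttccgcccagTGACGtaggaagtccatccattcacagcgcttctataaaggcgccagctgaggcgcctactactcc
Npas4 (chr19:4989972-4990221, minus strand): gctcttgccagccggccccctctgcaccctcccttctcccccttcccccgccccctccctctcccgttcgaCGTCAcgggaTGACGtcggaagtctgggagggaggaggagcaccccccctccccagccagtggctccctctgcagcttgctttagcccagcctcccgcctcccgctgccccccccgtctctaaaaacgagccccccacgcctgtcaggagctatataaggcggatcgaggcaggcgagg

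The core lies 233, 213, 69 and 40 bases before the start of Nr4a1, 129 and 66 before that of Fos, and 179 and 169 before that of Npas4. It lies at 177 and 109 in Egr4 and 106 in Junb, but not before the most upstream of 5 listed starts of Egr2. All 8 fell by selection, so the count is no test. The median log2 change was -1.47, and all kept their call in every alternative.

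Egr2, a zinc-finger factor, measured 15.0 and 13.6 CPM in sham 4 and 6 and 2.82, 3.70, 3.15 and 2.62 CPM in CCI 1, 2, 3 and 5 (fitted log2 change -2.21 ± 0.22 SE, adjusted p by edgeR = 1.22e-08). Nr4a1, an orphan nuclear receptor (ENSMUSG00000023034.6, chromosome 15, 101254269 to 101274795, plus strand), measured 107 and 101 CPM in sham 4 and 6 and 35.8, 45.4, 31.9 and 31.9 CPM in CCI 1, 2, 3 and 5 (fitted log2 change -1.51 ± 0.12 SE, adjusted p by edgeR = 1.31e-07). Arc, a protein of synaptic scaling (ENSMUSG00000022602.12, chromosome 15, 74669083 to 74672570, minus strand), measured 209.9 and 223 CPM in sham 4 and 6 and 91.5, 84.1, 71.6 and 64.8 CPM in CCI 1, 2, 3 and 5 (fitted log2 change -1.47 ± 0.19 SE, adjusted p by edgeR = 0.000417). All CCI values lay well below both sham values. Npas4, a factor that calcium entry induces in neurons, measured 19.1 and 16.3 CPM in sham 4 and 6 and 7.51, 10.1, 8.21 and 4.24 CPM in CCI 1, 2, 3 and 5 (fitted log2 change -1.23 ± 0.20 SE, adjusted p by edgeR = 6.19e-05), with CCI 5 lowest. Egr1 fell with fitted log2 change -1.48 ± 0.17 SE, adjusted p by edgeR = 0.000162 and Egr4 with fitted log2 change -1.77 ± 0.23 SE, adjusted p by edgeR = 2.54e-06. Fos and Junb, partners in the AP-1 factor, fell by less, with log2 fold changes of -1.08 ± 0.13 SE and -1.04 ± 0.15 SE (edgeR adjusted p = 7.44e-07 and 3.88e-05).

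Contralateral hemispheres of the sham animals 4, 6 and 8 give a further reference for these genes. Egr2 measured 7.72, 10.8 and 11.3 CPM there and Arc 221, 171 and 186 CPM, below or within the range of sham 4 and 6. Against these libraries the log2 fold change was -1.69 for Egr2, -1.30 for Arc and -1.42 for Nr4a1 (edgeR adjusted p = 3.25e-07, 0.000477 and 5.49e-08). The decrease was thus smaller for Egr2 against that reference and still called for all 3.

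Of the other large decreases, Gpr3, a receptor that raises cyclic AMP without a ligand, fell with fitted log2 change -1.23 ± 0.21 SE, adjusted p by edgeR = 7.16e-05. Phospho1, a phosphatase known from bone, fell from 17.4 ± 0.770 CPM (SD, n = 2) to 6.96 ± 0.748 CPM (n = 4; fitted log2 change -1.32 ± 0.17 SE, adjusted p by edgeR = 6.98e-07). Nr4a3, a relative of Nr4a1, fell with fitted log2 change -1.26 ± 0.25 SE, adjusted p by edgeR = 0.00534, a call lost at 0.0804 without sham 6. Erdr1, whose position in the pseudoautosomal region makes its counts uncertain, fell with fitted log2 change -1.40 ± 0.31 SE, adjusted p by edgeR = 0.00525, a call lost at 0.0628 without sham 4. The largest fitted decrease of the 10, that of Gm14434, did not follow the groups of the series. It measured 24.1 and 22.9 CPM in sham 4 and 6 and 2.68, 1.60, 0.137 and 2.99 CPM in CCI 1, 2, 3 and 5, but 1.62, 16.8, 28.3 and 17.3 CPM in the contralateral libraries of animals 1, 2, 3 and 5 and 2.08, 21.4 and 2.97 CPM in those of sham animals 4, 6 and 8. High and low values occur in both contralateral groups. Its call (edgeR adjusted p = 0.0421) was lost at 0.058 to 0.156 without CCI 1, CCI 2, CCI 3, CCI 5, sham 4, sham 6, CCI contralateral 2 or CCI contralateral 5, 0.117 to 0.145 on log2 TPM, 0.154 with limma voom, 0.243 against the sham contralateral libraries and 0.0656 without the filter on low counts, and near-identical copies of such genes make its counts uncertain.

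Regulators of activity signalling fell with them. Of 13 feedback regulators of MAP kinase tested, 11 fell, with a median of -0.57. Dusp6, the phosphatase that switches off ERK, measured 71.6 and 74.6 CPM in sham 4 and 6 and 40.5, 44.2, 41.3 and 36.5 CPM in CCI 1, 2, 3 and 5 (fitted log2 change -0.85 ± 0.09 SE, adjusted p by edgeR = 3.01e-08). Spred3 and Spred2, inhibitors of the step from Ras to Raf, fell with log2 fold changes of -0.63 ± 0.09 SE and -0.53 ± 0.09 SE (edgeR adjusted p = 7.14e-06 and 5.02e-05). The groups were separate for these genes. Rasd1, a small G protein that glucocorticoids induce, was not called (-0.31 ± 0.17 SE, edgeR adjusted p = 0.201). Against the sham contralateral libraries it was called lower (-0.59, edgeR adjusted p = 0.00272). For MAP kinase regulators, the count of lower members was 7 without sham 4, 5 without sham 6 and 6 to 8 on log2 TPM.

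Secreted proteins that neurons regulate with activity fell in 10 of 20 tested and none rose, with a median of -0.37. Bdnf, the brain-derived neurotrophic factor, measured 32.4 and 33.4 CPM in sham 4 and 6 and 17.2, 20.4, 19.6 and 15.6 CPM in CCI 1, 2, 3 and 5 (fitted log2 change -0.86 ± 0.12 SE, adjusted p by edgeR = 5.93e-06). Nrn1, the surface protein neuritin, measured 168 and 177 CPM in sham 4 and 6 and 101, 127, 105 and 96.7 CPM in CCI 1, 2, 3 and 5 (fitted log2 change -0.68 ± 0.09 SE, adjusted p by edgeR = 2.96e-06). Sst, the interneuron peptide somatostatin, measured 116 and 109 CPM in sham 4 and 6 and 73.1, 84.3, 75.8 and 70.1 CPM in CCI 1, 2, 3 and 5 (fitted log2 change -0.56 ± 0.08 SE, adjusted p by edgeR = 3.83e-06). CCI values of all 3 lay below sham values, with CCI 5 lowest each time. The lowest fitted value of the list, -1.95, belonged to Cort, a somatostatin-like peptide named after its value was seen (edgeR adjusted p = 0.000736). Nptx1, a pentraxin of synapses, was not called (-0.11 ± 0.08 SE, edgeR adjusted p = 0.375).

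Of 28 postsynaptic scaffolds and kinases tested, 25 fell, with a median of -0.38. Camkk2, a calmodulin-dependent kinase kinase, measured 266 and 279 CPM in sham 4 and 6 and 169.8, 197, 150.0 and 156 CPM in CCI 1, 2, 3 and 5 (fitted log2 change -0.70 ± 0.08 SE, adjusted p by edgeR = 8.8e-07). Ppp3ca, the catalytic subunit of calcineurin, measured 1274 and 1409 CPM in sham 4 and 6 and 958, 1043, 1007 and 936 CPM in CCI 1, 2, 3 and 5 (fitted log2 change -0.44 ± 0.06 SE, adjusted p by edgeR = 3.37e-06). Prkcb, a protein kinase C, fell with fitted log2 change -0.45 ± 0.06 SE, adjusted p by edgeR = 3.61e-06. The values were separate for each gene, with differences far smaller in fold than those of the myeloid genes. Ppp1r1b, the striatal phosphatase inhibitor DARPP-32, was not called (-0.15 ± 0.08 SE, edgeR adjusted p = 0.2).

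Neuronal transcription factors fell in 14 of 22 tested, with a median of -0.35. Fezf2, the factor of deep-layer cortical projection neurons, measured 19.8 and 21.4 CPM in sham 4 and 6 and 11.4, 10.98, 11.5 and 11.7 CPM in CCI 1, 2, 3 and 5 (fitted log2 change -0.86 ± 0.13 SE, adjusted p by edgeR = 1.17e-05). Bcl11b, its partner Ctip2 in cortex and striatum, measured 108 and 111 CPM in sham 4 and 6 and 72.7, 76.4, 80.9 and 81.4 CPM in CCI 1, 2, 3 and 5 (fitted log2 change -0.49 ± 0.07 SE, adjusted p by edgeR = 1.14e-05). Zbtb18, a repressor of cortical neurons, fell with fitted log2 change -0.42 ± 0.06 SE, adjusted p by edgeR = 1.44e-05. The CCI values of Fezf2 lay within about 1 CPM of each other. Npas3 was called higher (fitted log2 change 0.37 ± 0.14 SE, adjusted p by edgeR = 0.0498), and this call was lost at 0.0507 to 0.323 without CCI 1, CCI 2, CCI 5, sham 4, sham 6, CCI contralateral 1, CCI contralateral 3, CCI contralateral 5, sham contralateral 4, sham contralateral 6 or sham contralateral 8, 0.0955 to 0.098 on log2 TPM, 0.195 with DESeq2, 0.0687 with limma voom, 0.0648 with the ipsilateral libraries alone, 0.161 against the sham contralateral libraries, 0.0814 without the filter on low counts and 0.0534 with DESeq2 size factors. Myt1l, a factor of neuronal identity, was not called (-0.15 ± 0.06 SE, edgeR adjusted p = 0.1). The count of lower members was 9 without sham 6 and 8 against the sham contralateral libraries.

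Receptors and second messengers fell by smaller amounts. Of 23 genes of cyclic AMP, cyclic GMP and RGS signalling, 15 fell, with a median of -0.23. Rgs4, which shortens G protein signals in cortex, measured 527 and 565 CPM in sham 4 and 6 and 321, 388, 318 and 322 CPM in CCI 1, 2, 3 and 5 (fitted log2 change -0.69 ± 0.07 SE, adjusted p by edgeR = 3e-08). Adcy1, the calcium-activated adenylyl cyclase of neurons, measured 896 and 994 CPM in sham 4 and 6 and 655, 711, 615 and 626 CPM in CCI 1, 2, 3 and 5 (fitted log2 change -0.54 ± 0.06 SE, adjusted p by edgeR = 2.61e-07). Both were lower in every CCI library, and CCI 2 was the highest of these for Rgs4. Prkar1b, a regulatory subunit of protein kinase A in neurons, fell with fitted log2 change -0.24 ± 0.05 SE, adjusted p by edgeR = 0.00157, and Prkacb, a catalytic subunit, was not called (-0.16 ± 0.06 SE, edgeR adjusted p = 0.0662). For cyclic nucleotide genes, the count of lower members was 7 without sham 6 or against the sham contralateral libraries and 4 to 7 on log2 TPM.

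Monoamine and acetylcholine receptors fell in 10 of 25 tested, with a median of -0.29. Adrb1, the cortical beta adrenoceptor, measured 17.9 and 16.8 CPM in sham 4 and 6 and 10.1, 10.9, 8.35 and 9.22 CPM in CCI 1, 2, 3 and 5 (fitted log2 change -0.84 ± 0.14 SE, adjusted p by edgeR = 5.78e-05). Chrna4, a subunit of high-affinity nicotinic receptors, measured 42.5 and 45.9 CPM in sham 4 and 6 and 35.0, 33.6, 28.6 and 26.9 CPM in CCI 1, 2, 3 and 5 (fitted log2 change -0.51 ± 0.10 SE, adjusted p by edgeR = 0.000306). Both were lower in every CCI library. Chrm1, the muscarinic receptor of cortical neurons, fell with fitted log2 change -0.34 ± 0.07 SE, adjusted p by edgeR = 0.000766, a call lost at 0.0519 on log2(TPM + 1) without a filter and 0.142 against the sham contralateral libraries, and Htr2c, a serotonin receptor, was not called (-0.12 ± 0.07 SE, edgeR adjusted p = 0.275). For monoamine and acetylcholine receptors, the count of lower members was 6 with DESeq2, 5 without sham 6 or against the sham contralateral libraries and 2 to 4 on log2 TPM.

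Metabotropic and kainate glutamate receptors fell in 4 of 12 tested, with a median of -0.18. Grm5 measured 244 and 313 CPM in sham 4 and 6 and 229.9, 237, 228 and 222 CPM in CCI 1, 2, 3 and 5 (fitted log2 change -0.28 ± 0.07 SE, adjusted p by edgeR = 0.00569). Grm4, a presynaptic receptor, fell with fitted log2 change -0.44 ± 0.14 SE, adjusted p by edgeR = 0.0213. Grik5, a kainate receptor subunit, was not called (-0.08 ± 0.07 SE, edgeR adjusted p = 0.515). Grm5 lost its call at 0.561 without sham 6, 0.0969 to 0.146 on log2 TPM and 0.302 against the sham contralateral libraries, and Grm4 at 0.517 without sham 4, 0.169 to 0.226 on log2 TPM and 0.0748 with DESeq2. For metabotropic and kainate receptors, the count of lower members was 1 without sham 4 or sham 6 and 0 on log2 TPM.

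Synaptic adhesion molecules fell in 13 of 26 tested, with a median of -0.19. Nrxn3, a presynaptic neurexin, measured 229 and 234 CPM in sham 4 and 6 and 166, 193, 204 and 168 CPM in CCI 1, 2, 3 and 5 (fitted log2 change -0.34 ± 0.07 SE, adjusted p by edgeR = 0.000842). Lrrtm1 and Cadm2, adhesion proteins of synapses, fell with log2 fold changes of -0.38 ± 0.08 SE and -0.29 ± 0.07 SE (edgeR adjusted p = 0.00109 and 0.00255). Nrxn3 lost its call at 0.0569 to 0.0958 on log2 TPM and 0.191 against the sham contralateral libraries, Lrrtm1 at 0.0546 without sham 4, and Cadm2 at 0.212 without sham 6 and 0.449 to 0.564 on log2 TPM. Cntn1, a contactin of axons, was not called (-0.11 ± 0.06 SE, edgeR adjusted p = 0.191). For adhesion molecules, the count of higher members was 1 against the sham contralateral libraries, and the count of lower members was 5 against the sham contralateral libraries, 3 without sham 6 and 4 to 5 on log2 TPM.

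Axonal motors fell in 5 of 17 tested, with a median of -0.14. Kif5a, the kinesin heavy chain of neurons, measured 3429.9 and 3576 CPM in sham 4 and 6 and 2894, 2849.7, 2535 and 2952 CPM in CCI 1, 2, 3 and 5 (fitted log2 change -0.32 ± 0.06 SE, adjusted p by edgeR = 0.000415). Kif5c and the light chain Klc2 fell with log2 fold changes of -0.30 ± 0.06 SE and -0.35 ± 0.06 SE (edgeR adjusted p = 0.000261 and 6.33e-05). The groups were separate for the 3 kinesin genes. Kif1a, the motor of synaptic vesicle precursors, was not called (-0.14 ± 0.06 SE, edgeR adjusted p = 0.0872). For axonal motors, the count of lower members was 3 without sham 4 and 3 on log2 TPM.

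Tubulins and microtubule-associated proteins split by isoform, with 4 higher and 7 lower of 23 tested and a median of -0.08. Tubb6, a beta-tubulin of dividing and non-neuronal cells, measured 16.4, 12.3, 13.96 and 16.2 CPM in CCI 1, 2, 3 and 5 against 6.37 and 4.83 CPM in sham 4 and 6 (fitted log2 change 1.40 ± 0.20 SE, adjusted p by edgeR = 5.2e-06). Tubb2b, a beta-tubulin of immature neurons and glia, measured 175, 174, 199 and 188 CPM in CCI 1, 2, 3 and 5 against 138 and 128 CPM in sham 4 and 6 (fitted log2 change 0.47 ± 0.08 SE, adjusted p by edgeR = 3.04e-05). Both were higher in each CCI library. Tuba1c rose with fitted log2 change 1.12 ± 0.24 SE, adjusted p by edgeR = 0.00445, a call lost at 0.0827 without sham 6. Tuba4a, an alpha-tubulin of mature neurons, measured 500.1 and 462 CPM in sham 4 and 6 and 351, 413, 399.8 and 368 CPM in CCI 1, 2, 3 and 5 (fitted log2 change -0.33 ± 0.06 SE, adjusted p by edgeR = 0.000228), a call lost at 0.0508 on log2(TPM + 1) without a filter. Map6, which stabilises microtubules, and Dclk1, a doublecortin-like kinase, fell with log2 fold changes of -0.32 ± 0.07 SE and -0.33 ± 0.07 SE (edgeR adjusted p = 0.000482 and 0.00064). Tuba1b was not called (0.03 ± 0.07 SE, edgeR adjusted p = 0.823), and tubulin copies of close sequence share reads, which makes their division uncertain. For tubulins, the count of higher members was 2 without sham 6, and the count of lower members was 4 without sham 6 or against the sham contralateral libraries and 2 to 3 on log2 TPM.

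**Figure D4:**
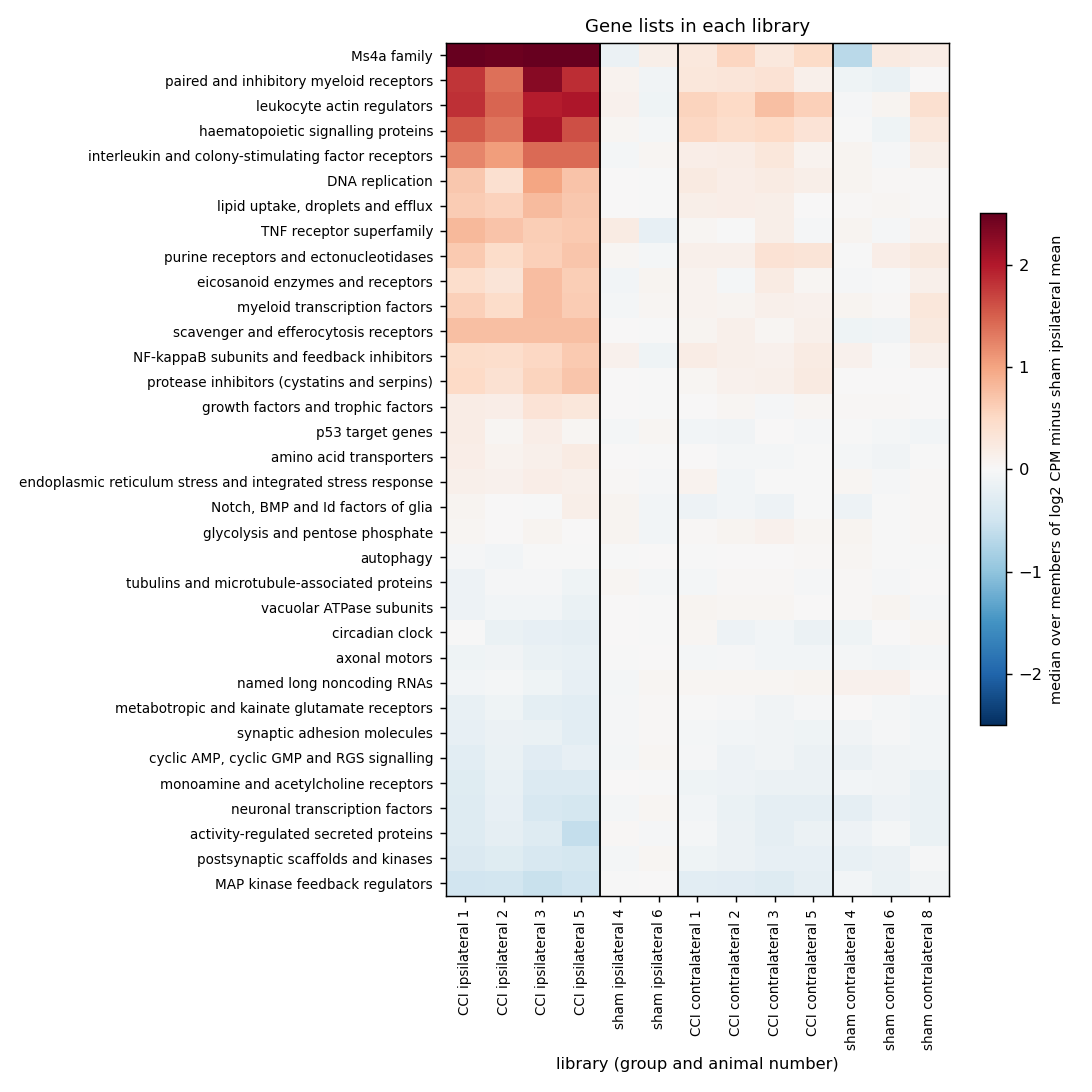
Median over list members of log2 CPM minus the sham ipsilateral mean (colour scale, red above and blue below 0) for 34 gene lists (rows) in each of the 13 libraries (columns, named by group and animal, with lines between groups). The 4 CCI ipsilateral columns are red for the myeloid lists and light blue for the neuronal lists. Among them CCI 2 is the palest and CCI 3 the darkest for several myeloid lists, such as paired receptors and haematopoietic signalling, and the contralateral columns of CCI mice are faintly red for leukocyte actin regulators.

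Genes of the circadian clock were described because surgery and sampling time can shift them, and the labels give no hour of sampling. Of 15 tested, 4 were lower and none higher, with a median of -0.13. Per1, a clock gene that activity also induces, measured 107 and 110.0 CPM in sham 4 and 6 and 77.1, 72.7, 79.4 and 76.6 CPM in CCI 1, 2, 3 and 5 (fitted log2 change -0.50 ± 0.08 SE, adjusted p by edgeR = 4.34e-05). Rora, a nuclear receptor of the clock and of thalamic neurons, measured 151 and 150.1 CPM in sham 4 and 6 and 113, 115, 91.4 and 98.4 CPM in CCI 1, 2, 3 and 5 (fitted log2 change -0.53 ± 0.08 SE, adjusted p by edgeR = 1.46e-05). The groups did not overlap for these genes. Clock fell with fitted log2 change -0.27 ± 0.07 SE, adjusted p by edgeR = 0.00618. Its call was lost at 0.167 to 0.214 on log2 TPM and 0.125 against the sham contralateral libraries. Without sham 6 it was also lost, at a log2 fold change of -0.19. Tef, a factor of clock output, was not called (0.18 ± 0.07 SE, edgeR adjusted p = 0.0662). Against the sham contralateral libraries Tef was called higher (0.20, edgeR adjusted p = 0.0161). For clock genes, the count of higher members was 1 without the filter on low counts or against the sham contralateral libraries and 2 without CCI 2, and the count of lower members was 2 without sham 6 and 2 on log2 TPM.

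Of 1248 tested genes that the annotation lists as other than protein coding, 31 were higher and 56 lower, against 1822 and 1433 of 13560 protein-coding genes. Among 20 named long noncoding RNAs, 2 rose and 4 fell, and 8 were lower against the sham contralateral libraries. Neat1, the scaffold of nuclear paraspeckles, measured 486, 429, 489.8 and 479.6 CPM in CCI 1, 2, 3 and 5 against 222 and 241 CPM in sham 4 and 6 (fitted log2 change 1.02 ± 0.08 SE, adjusted p by edgeR = 5.33e-10). H19, an imprinted RNA of growing tissue, measured 3.22, 3.58, 4.38 and 4.24 CPM in CCI 1, 2, 3 and 5 against 0.517 and 0.755 CPM in sham 4 and 6 (fitted log2 change 2.55 ± 0.43 SE, adjusted p by edgeR = 5.17e-05). Both were higher in each CCI library. Mir124a-1hg, a host transcript of the neuronal microRNA miR-124, measured 256 and 282 CPM in sham 4 and 6 and 201, 196, 191 and 185 CPM in CCI 1, 2, 3 and 5 (fitted log2 change -0.48 ± 0.07 SE, adjusted p by edgeR = 2.86e-06). Rian and Peg13, imprinted RNAs of brain, fell with log2 fold changes of -0.32 ± 0.06 SE and -0.26 ± 0.06 SE (edgeR adjusted p = 0.000228 and 0.00131), and Meg3 was not called (-0.12 ± 0.06 SE, edgeR adjusted p = 0.207). Against the sham contralateral libraries Meg3 was called lower (-0.19, edgeR adjusted p = 0.0109).

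The largest increases of that class were Gm29374, RP24-299A7.2, Gm12070, Clec7a and AU020206. Clec7a, the receptor dectin-1, codes for a protein and is listed by the annotation as a polymorphic pseudogene. It had 3 sham counts against 301 CCI counts, for a scaled ratio of 40.4 (95% counting interval 13.7 to 197). AU020206 had 3 and 77 counts, a ratio of 10.3 (95% counting interval 3.40 to 51.2). RP24-299A7.2 and Gm12070 had no sham count and were at least 5.23-fold and 4.96-fold higher. Gm12070 lost its call at 0.0612 without sham 6 and 0.517 against the sham contralateral libraries, and its log2 fold change against the sham contralateral libraries was -0.49.

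The largest decreases of that class were Gm7367, Gm15721, Gm38309, RP23-301C7.2 and RP23-153H17.7, with sham means of 2.53 ± 0.902, 2.55 ± 0.445, 1.58 ± 0.535, 2.42 ± 0.225 and 3.92 ± 0.432 CPM (SD, n = 2). Gm7367 was at 0 in 3 of the 4 CCI libraries. Their edgeR adjusted p values were 0.000944, 0.0011, 0.0387, 0.0396 and 0.00369, and each of the 5 lost its call in at least 1 alternative. Gm7367 lost it at 0.103 with DESeq2 and 0.276 against the sham contralateral libraries, and Gm15721 at 0.0515 without sham 6. Gm38309 lost it at 0.0533 to 0.433 without CCI 1, CCI 2, CCI 3, sham 4 or sham 6, 0.0558 to 0.0708 on log2 TPM, 0.161 with DESeq2, 0.16 against the sham contralateral libraries and 0.0561 without the filter on low counts. RP23-301C7.2 lost it at 0.0635 to 0.192 without CCI 1, CCI 2, sham 4 or sham 6, 0.176 to 0.245 on log2 TPM, 0.153 with DESeq2 and 0.909 against the sham contralateral libraries, and RP23-153H17.7 at 0.0851 without sham 6.

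The CCI animals also differed among themselves. The 8 called genes of at least 5 CPM with the largest SD of log2 CPM among the CCI libraries were H2-Eb1, Ifi27l2a, Slc43a3, Cdk1, WI1-49P9.2, Oasl2, Irf7 and Ifit1. H2-Eb1, an MHC class II chain, measured 3.76, 6.66, 16.0 and 10.8 CPM in CCI 1, 2, 3 and 5 against 2.24 and 1.66 CPM in sham 4 and 6, an SD of 0.87 on the log2 scale. Ifi27l2a, an interferon-induced protein, measured 3.09, 4.44, 10.9 and 6.98 CPM in CCI 1, 2, 3 and 5 against 1.72 and 0.604 CPM in sham 4 and 6 (SD 0.75). CCI 3 was highest and CCI 1 lowest for both, the order seen above for Irf7, Ifit1 and Ifit3. Their calls (fitted log2 change 2.25 ± 0.61 SE, adjusted p by edgeR = 0.0203 for H2-Eb1 and fitted log2 change 2.47 ± 0.77 SE, adjusted p by edgeR = 0.0416 for Ifi27l2a) were not stable. H2-Eb1 lost its call at 0.0947 to 0.189 without sham 4 or sham 6, 0.121 with limma voom and 0.152 with the ipsilateral libraries alone. Ifi27l2a lost it at 0.0609 to 0.288 without CCI 5, sham 4, sham 6, CCI contralateral 2, CCI contralateral 5 or sham contralateral 4, 0.0689 on log2(TPM + 1), 0.0828 on log2(TPM + 0.1), 0.0968 with limma voom and 0.0737 with the ipsilateral libraries alone.

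Cdk1, the kinase of mitotic entry, measured 8.05, 2.84, 8.49 and 6.85 CPM in CCI 1, 2, 3 and 5 against 0.689 and 0.906 CPM in sham 4 and 6 (fitted log2 change 2.99 ± 0.51 SE, adjusted p by edgeR = 0.000143), with adjusted p at 0.0529 to 0.153 on log2 TPM. Slc43a3, a purine base transporter, measured 7.38, 3.33, 10.3 and 9.22 CPM in CCI 1, 2, 3 and 5 against 0.689 and 1.06 CPM in sham 4 and 6 (fitted log2 change 3.06 ± 0.46 SE, adjusted p by edgeR = 2.6e-05). For these genes CCI 2 was the low library, so the order of the animals was not that of the interferon genes. WI1-49P9.2 measured 10.2, 6.54, 21.5 and 10.96 CPM in CCI 1, 2, 3 and 5 against 4.13 and 2.87 CPM in sham 4 and 6 (fitted log2 change 1.81 ± 0.48 SE, adjusted p by edgeR = 0.0192), with CCI 3 highest, and lost its call at 0.0701 to 0.188 without sham 4 or sham 6, 0.0993 with limma voom and 0.157 with the ipsilateral libraries alone.

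Low-spread genes were picked by rank, without a test. The 8 genes with at least 4-fold change and the smallest spread were Dnase2a, A2m, Clic1, Micall2, Fcer1g, P2ry6, Plau and S100a11. A2m, the protease inhibitor alpha-2-macroglobulin, measured 106, 97.7, 95.1 and 112 CPM in CCI 1, 2, 3 and 5 against 3.79 and 6.49 CPM in sham 4 and 6 (fitted log2 change 4.29 ± 0.16 SE, adjusted p by edgeR = 1.43e-17). Dnase2a, the lysosomal nuclease that degrades engulfed DNA, measured 9.52, 10.5, 10.1 and 10.3 CPM in CCI 1, 2, 3 and 5 against 2.24 and 2.57 CPM in sham 4 and 6 (fitted log2 change 2.06 ± 0.26 SE, adjusted p by edgeR = 8.23e-07). The CCI values of these genes had an SD of 0.11 and 0.06 on the log2 scale, low by selection. Fcer1g, the signalling chain of Fc receptors, measured 33.7, 29.5, 33.0 and 37.7 CPM in CCI 1, 2, 3 and 5 against 5.34 and 6.49 CPM in sham 4 and 6 (fitted log2 change 2.49 ± 0.16 SE, adjusted p by edgeR = 1.09e-12). Clic1, a chloride channel protein of activated microglia, rose with fitted log2 change 2.03 ± 0.20 SE, adjusted p by edgeR = 4.55e-08, Plau, the urokinase protease, with fitted log2 change 2.36 ± 0.27 SE, adjusted p by edgeR = 2.04e-07, S100a11, a calcium-binding protein, with fitted log2 change 2.15 ± 0.19 SE, adjusted p by edgeR = 2.01e-09, and Micall2, a cytoskeletal adaptor, with fitted log2 change 2.16 ± 0.32 SE, adjusted p by edgeR = 7.07e-06.

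**Figure D5:**
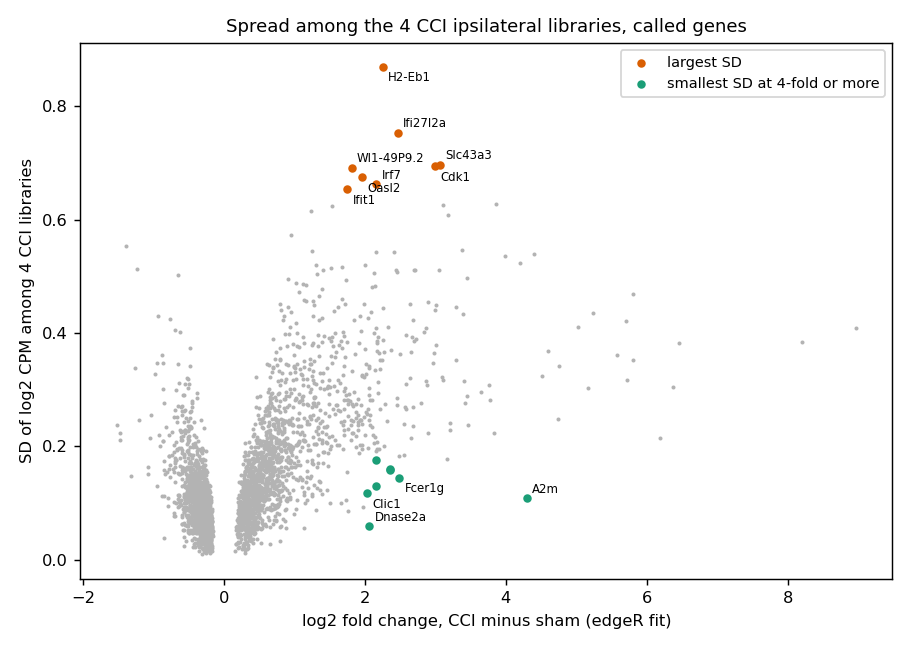
SD of log2 CPM among the 4 CCI ipsilateral libraries (vertical axis) against the log2 fold change of CCI over sham (horizontal axis, edgeR fit), 1 point for each called gene with a mean of at least 5 CPM in the CCI ipsilateral libraries. Orange points are the 8 genes with the largest SD and green points the 8 with at least 4-fold change and the smallest SD. H2-Eb1 lies at 0.87 and Dnase2a at 0.06 at similar fold changes, and A2m combines a log2 fold change of 4.29 with an SD of 0.11.

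Cell and region markers follow. Microglia markers rose in 6 of 6 tested, among them Cx3cr1 (fitted log2 change 1.19 ± 0.23 SE, adjusted p by edgeR = 0.00379) and Sall1 (fitted log2 change 0.74 ± 0.15 SE, adjusted p by edgeR = 0.00131). P2ry12, Tmem119 and Siglech rose by 0.59, 0.66 and 0.64 on the log2 scale (edgeR adjusted p = 0.0411, 0.00249 and 0.00725). The 6 summed to 333 to 462 CPM in CCI and 189.6 to 196 CPM in sham ipsilateral libraries. P2ry12 lost its call at 0.0505 to 0.351 without CCI 1, CCI 3, CCI 5, sham 4, sham 6, CCI contralateral 1, CCI contralateral 5 or sham contralateral 6, 0.0816 to 0.121 on log2 TPM and 0.0681 with limma voom, Tmem119 at 0.155 without sham 6, and Siglech at 0.169 without sham 6 and 0.0649 on log2(TPM + 1) without a filter, so that without sham 6, 3 of the 6 were called. The 8 markers of monocytes and macrophages summed to 299.5 to 515 CPM against 8.27 to 8.76 CPM, mostly Lyz2. All 4 tested rose, which is no test for Arg1, Ccr2 and Ms4a7. At 0 to 4 sham counts a gene passes the filter only if higher elsewhere. Ccr2, a monocyte receptor, had 2 sham and 112 CCI counts, a scaled ratio of 22.5 (95% counting interval 6.09 to 188).

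Markers of other blood cells were scarce. The 11 neutrophil markers summed to 18.5 to 30.0 CPM in CCI and 8.27 to 9.96 CPM in sham libraries, of which Csf3r, also a gene of other myeloid cells, held most. S100a8 and S100a9 of neutrophils were not called (1.49 and 0.15, edgeR adjusted p = 0.476 and 0.95). The 14 markers of T and NK cells summed to 14.1 to 17.1 and 16.3 to 20.0 CPM, with Cd3e and Gzmb at 0 in all ipsilateral libraries. Trbc2, a T-cell receptor constant gene, was lower (-0.71, edgeR adjusted p = 0.0498), a call lost at 0.0505 to 0.536 without CCI 1, CCI 3, CCI 5, sham 4, CCI contralateral 1, CCI contralateral 2, CCI contralateral 5, sham contralateral 6 or sham contralateral 8, 0.0826 on log2(TPM + 1) without a filter, 0.153 with DESeq2, 0.0793 with limma voom, 0.0722 with the ipsilateral libraries alone and 0.0701 without the filter on low counts. The 5 red cell markers summed to 74.0 to 131 CPM and 72.6 to 151 CPM and overlapped between the groups, and none of the 5 was called. Dendritic cell markers gave 1 call of 3, Itgax, an integrin that activated microglia also express, with 1 and 103 counts, and 1 marker was lower against the sham contralateral libraries. Platelet markers gave 1 of 3, Pf4, which macrophages of brain borders also express (fitted log2 change 2.84 ± 0.53 SE, adjusted p by edgeR = 0.000154), a call lost at 0.296 on log2(TPM + 0.1). Of 7 B-cell and plasma-cell markers 2 were tested and neither was called, though 1 was higher without CCI 3, without the filter on low counts and on log2(TPM + 0.1), and none of the mast cell markers passed the filter.

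Markers of resident glia and stroma rose in part. Of 5 astrocyte markers, 3 rose: Aqp4, the water channel of astrocyte endfeet (fitted log2 change 1.31 ± 0.13 SE, adjusted p by edgeR = 2.24e-05), Gja1, their gap junction protein (fitted log2 change 0.75 ± 0.08 SE, adjusted p by edgeR = 8.28e-08), and Aldh1l1 (fitted log2 change 0.60 ± 0.13 SE, adjusted p by edgeR = 0.0032), the last lost at 0.0868 without sham 6. Of 4 markers of oligodendrocyte precursors, 2 rose. Gpr17, a receptor of precursors about to differentiate, measured 108, 99.2, 161 and 163 CPM in CCI 1, 2, 3 and 5 against 47.2 and 43.5 CPM in sham 4 and 6 (fitted log2 change 1.55 ± 0.29 SE, adjusted p by edgeR = 0.00349), a call lost at 0.052 without sham 6. Vcan, a proteoglycan of precursors and scars, rose with fitted log2 change 0.69 ± 0.12 SE, adjusted p by edgeR = 5.02e-05, a call lost at 0.377 to 0.468 on log2 TPM. Of 5 oligodendrocyte markers 3 were higher, but 1 without sham 4, none without sham 6 and 1 against the sham contralateral libraries.

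Meningeal and perivascular fibroblast markers rose in 5 of 7. Col3a1, a fibrillar collagen of scar tissue, measured 39.4, 35.5, 44.8 and 52.6 CPM in CCI 1, 2, 3 and 5 against 3.79 and 5.43 CPM in sham 4 and 6 (fitted log2 change 3.20 ± 0.30 SE, adjusted p by edgeR = 9.13e-06). Col1a1 and Col1a2, the chains of the main fibrillar collagen, rose with log2 fold changes of 2.26 ± 0.36 SE and 1.77 ± 0.19 SE, and Lum, a proteoglycan of collagen, with 1.96 ± 0.28 SE (edgeR adjusted p = 0.00132, 6.61e-06 and 4.4e-06). The summed level of the list was 202 to 314 CPM in CCI and 93.2 to 100.4 CPM in sham libraries. Endothelial markers gave 1 call of 6, Pecam1 (fitted log2 change 0.48 ± 0.12 SE, adjusted p by edgeR = 0.00257), and markers of pericytes and smooth muscle 2 of 6, Acta2 and Tagln (0.60 and 0.87, edgeR adjusted p = 0.0119 and 0.00443). Pecam1 lost its call at 0.0868 without sham 6, Acta2 at 0.394 without sham 6 and 0.0578 on log2(TPM + 1) without a filter, and Tagln at 0.129 without sham 6 and 0.0858 with the ipsilateral libraries alone. Of 5 ependymal markers, Rarres2 and Foxj1 were higher (1.39 and 0.64, edgeR adjusted p = 0.000263 and 0.0107), Foxj1 losing its call at 0.215 without sham 6. No marker of choroid plexus, skeletal muscle, or bone and skin was called.

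Neuron and region markers fell by small amounts. Of 5 neuron markers tested 4 fell: Snap25, Syt1, Rbfox3 and Slc17a7, with log2 fold changes of -0.50, -0.36, -0.30 and -0.26 (edgeR adjusted p = 6.44e-07, 0.000146, 0.000358 and 0.00343). Slc17a7 lost its call at 0.0574 without sham 6, 0.0586 to 0.0907 on log2 TPM and 0.529 against the sham contralateral libraries. Of 7 striatal markers 4 were lower, with sums of 797 to 899.7 CPM in CCI and 1024 to 1054 CPM in sham ipsilateral libraries, but 797 to 945 CPM in sham contralateral ones. Against the latter none was called, and the count was 2 without sham 4, 1 without sham 6 and 1 to 2 on log2 TPM. Of 5 thalamic markers 4 were lower, with sums of 259 to 347 CPM and 395 to 442 CPM, and 5 were lower against the sham contralateral libraries, where sums were 423 to 447 CPM. The thalamic count was 2 without sham 4 and on log2(TPM + 1) without a filter. Markers of cerebellum and hindbrain summed to 64.9 to 84.5 and 37.4 to 61.8 CPM, and those of the olfactory bulb to 24.8 to 57.1 and 21.4 to 22.9 CPM, with none called, other than 1 hindbrain or cerebellar marker that was higher with DESeq2. The part of these differences in the neuronal decreases was not tested.

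CCI and sham contralateral hemispheres differed in 14 genes (0.0941% of those tested), against 22.5% in the ipsilateral comparison. The difference between the effects in the hemispheres was itself tested and was called for 1165 genes (7.83%). For A2m the ipsilateral effect exceeded the contralateral one by 2.93 ± 0.25 SE on the log2 scale (edgeR adjusted p = 2.8e-08). For Dnase2a it did so by 1.92 ± 0.36 SE (edgeR adjusted p = 0.00102). Of the interferon genes Isg15 and Bst2 differed clearly, by 2.21 ± 0.49 SE and 2.40 ± 0.46 SE (edgeR adjusted p = 0.00476 and 0.00269). For Irf7 the difference was 1.17 ± 0.59 SE and was not called (edgeR adjusted p = 0.268). For Nrn1 the decrease was larger on the ipsilateral side by -0.65 ± 0.11 SE (edgeR adjusted p = 0.00105). Each hemisphere was compared with sham libraries of its own side.

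In the authors' deposited table, 1704 genes are called higher and 1157 lower of 17404 with an adjusted p in this comparison, per its own DESeq2 fit. Of the calls made here, 1332 higher and 713 lower genes are also called in the same direction in the authors' deposited table.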

How the data were processed

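RNA of 13 hemispheres from 7 mice was sequenced by the authors as polyadenylated, stranded libraries. Tools named in the submitters' processing notes are RSEM, bcl2fastq and DESeq2, and the build named there is GRCm38, or mm10. Aligner and strand setting of the counting: not given in the sources used here. Hence genes that overlap on opposite strands and near-identical copies are uncertain. Expected counts, which RSEM estimates for each gene, were deposited without normalization, per the file headers. The authors also deposited TPM, abundance per length and library, per the file headers. The authors' deposited comparison table holds for each gene a log2 estimate and a score that is the signed fold change. The same deposited table gives the authors' p-value and its Benjamini-Hochberg adjustment.

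Expected counts were rounded to whole numbers, 9.76% not being whole as deposited. Totals set the precision: intervals and the floor of 3 counts over a group cover counting error only. CPM were scaled by TMM. edgeR 4.0.16 (R 4.3.3) fitted 4 group means to all 13 libraries, with its quasi-likelihood test, robust option and filter on low counts by group, and calls were made at an adjusted p under 0.05 over 14875 genes. Folds were computed from fitted log2 values, and each SE is derived from the test statistic. Alternatives were DESeq2 1.42.0, DESeq2 size factors, no filter, limma 3.58.1 on log2(TPM + 1), on log2(TPM + 0.1) and on log2(TPM + 1) without a filter, limma voom with the animal as a random effect, the 6 ipsilateral libraries alone, the sham contralateral libraries as reference, and leaving out each library. Tables and figures used Python 3.11.15, SciPy 1.17.1 and matplotlib 3.10.9. Replicates of a group differed by more than sampling noise (chi-square per degree of freedom 2 to 3.79), so none was counted as a duplicate. The labels number the animals, so p-values cover the spread between animals. Deviations from group means correlated at 0.00348 to 0.0882 between the hemispheres of an animal.

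Genes were named by a rule: of called genes, the 10 largest fitted changes in each direction (mean of at least 5 CPM in the higher group, no overlap) and the 10 largest CPM gains and losses. In each pathway list it takes the 3 called members of smallest p in each direction and the most abundant member not called. It adds the 8 called genes of largest and of smallest spread among CCI libraries, the latter with at least 4-fold change, the 5 largest changes in each direction outside protein_coding genes, the 8 highest genes without sham counts, and members of marker and promoter lists. Some genes that the rule takes are not reported here. The 34 pathway and 25 marker lists hold 682 pathway genes, of which 674 had a row and 618 passed the filter. The members, lists and rules were chosen with earlier results of these data known. Gene positions are those of GENCODE M21 on GRCm38, and promoter sequences come from RefSeq, GRCm38.p6.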

Additional observations from a re-analysis of the deposited data

Results flagged for a closer look

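In a group of 4 libraries, chance puts 1 library as far from the rest for about 1 gene in 20, and it lay so for 10 of the 254 genes named here. Among the CCI ipsilateral libraries, CCI 2 lay far from the others for Fos (19.5 CPM, others 15.4 to 16.1), Mcm3 (6.29 CPM, others 9.99 to 10.5), Neat1 (429 CPM, others 479.6 to 489.8) and Rgs4 (388 CPM, others 318 to 322). CCI 1 lay apart for Gm5537 (26.0 CPM, others 0 to 2.19) and Rsad2 (2.95 CPM, others 6.98 to 7.66). CCI 3 lay apart for Ms4a6c (13.0 CPM, others 6.04 to 7.10). CCI 5 lay apart for Slc1a2 (3238 CPM, others 2858 to 2896), Tuba1c (34.6 CPM, others 22.1 to 24.2) and Gm7367 (0.125 CPM, others 0).

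The edgeR interaction term of hemisphere and CCI was called for 1165 genes. Of the largest changes, only those with a call are given. Among the largest increases the ipsilateral effect exceeded the contralateral one by 5.36 ± 0.68 SE on the log2 scale for Lgals3, 4.21 ± 1.04 SE for Gpnmb and 4.52 ± 0.68 SE for Lyz2. Arg1, Timp1 and Lilrb4 had 0, 1 and 2 summed sham counts, so only the edgeR adjusted p of the difference is given, 0.00265, 0.00426 and 0.0263. Among the largest decreases the difference was -1.59 ± 0.29 SE for Egr2, -1.08 ± 0.30 SE for Egr4, -1.27 ± 0.16 SE for Nr4a1, -1.13 ± 0.23 SE for Egr1, -1.30 ± 0.26 SE for Arc and -1.05 ± 0.22 SE for Phospho1. The sham groups of the sides hold different numbers of libraries, and every ipsilateral library is coded RH.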

How the results depend on the processing

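The 1859 higher genes became 1357 with DESeq2, 1845 against the sham contralateral libraries and 985 to 2001 when 1 library was left out, with the lowest value without sham 6. The 1493 lower genes became 660 and 655 on log2 TPM with pseudocounts of 1 and 0.1, 570 on log2(TPM + 1) without a filter, 1190 with DESeq2 and 690 to 1564 when 1 library was left out, again lowest without sham 6. The cause of the lower TPM counts was not tested. The 774 called genes of at least 2-fold change stayed between 588 and 875 over all alternatives. The 1165 differences between hemisphere effects became 393 (without sham 6) to 1457 when 1 library was left out and 915 with DESeq2. Of 217 called genes named here, 152 kept their call and direction in every alternative, and 46 lost it without sham 6. Gm12070 turned to -0.49 on the log2 scale against the sham contralateral libraries. List counts stayed within 1.5 times in 2427 of 2640 cases. With 2 sham libraries, leaving out 1 leaves a lone library that is assumed to vary like the other groups.

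No paired analysis was possible because CCI and sham ipsilateral libraries share no animal. With the animal as a replicate block across hemispheres (limma voom, estimated correlation 0.155), 1711 genes were higher, 1481 lower, 716 at least 2-fold changed and 1456 differed between hemispheres, and 9 of the named genes lost their call.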
